A study of Mus musculus with 12 samples.

Results

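The effect of losing Gfi1 on ribosome-bound RNA was compared between 2 sensory organs of newborn mice, the hearing organ (cochlea) and the organs of balance (vestibule). All 12 libraries of the series entered 1 fit, and each gene was given 3 values on the log2(CPM + 1) scale: the cochlear change (mutant minus heterozygote), the vestibular change, and the difference between organs, which is the cochlear change minus the vestibular change. CPM counts a gene's reads after each library is scaled to the same total. A gene was tested when each organ had 3 or more libraries, of 6, at or above 1 CPM of it. This kept 14674 of the 23427 genes listed in both organs. The 4 groups held 3 libraries each, labelled as biological triplicates: Gfi1Cre/+;RiboTagHA/HA heterozygotes and Gfi1Cre/Cre;RiboTagHA/HA mutants, each from cochlea and from vestibule at P0-P1, postnatal day 0 to 1. All mice carried 2 copies of RiboTagHA, an allele whose ribosomal protein gains an HA tag in cells with Cre recombinase and in their descendants, and antibody to HA then pulls down ribosomes with their RNA. Cre was driven by the Gfi1 locus itself, so mutants carried 2 copies of Cre and heterozygotes 1, and Cre dose and loss of Gfi1 cannot be told apart. Cochlear libraries were made with the NuGEN Ovation Ultralow kit and vestibular libraries with the NEBNext Ultra Directional kit, so organ and kit cannot be told apart, and levels were not compared between organs. The labels do not say which mice gave each library, so p-values measure the spread between these libraries. Gene positions are chromosome, start, end and strand in GENCODE M21 on GRCm38.

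GFI1 is a zinc finger repressor of transcription that hair cells make soon after they form, and mice without it lose cochlear hair cells and have disordered balance organs. Hair cells carry a bundle of actin-filled stereocilia whose tip links pull open transduction channels, and they signal to nerve endings through ribbon synapses. Vestibular hair cells keep a true cilium, the kinocilium, beside the bundle, whereas cochlear hair cells lose theirs as they mature. GFI1 is also made in blood cells, including granulocytes and some mast cell precursors.

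Cochlear libraries held 7531518 to 9363796 reads and vestibular ones 18951026 to 29370267. A read was worth 0.107 to 0.133 CPM in the first and 0.0340 to 0.0528 CPM in the second. Gfi1 (chr5:107716657-107726036, minus) was at 165, 106 and 126 CPM in heterozygotes and 75.1, 64.3 and 69.1 CPM in mutants in the cochlea. Gfi1 in the vestibule was at 534, 449.8 and 483 CPM in heterozygotes and 236, 198 and 208 CPM in mutants. It fell in both organs without overlap of the groups, by 0.90 and 1.19 on the log2 scale, and the difference of 0.29 (SE 0.22) was not called (limma BH-adjusted p = 0.646). The hair cell markers Pou4f3 and Myo7a were present in every library, with Pou4f3 ranging from 221 to 301 CPM (cochlea) and from 506 to 888 CPM (vestibule). Markers of other cells moved with genotype, mostly in the vestibule. The 16 mesenchyme markers summed to 2873 to 3783 CPM in vestibular heterozygotes and 1657 to 2295 CPM in mutants, with none at 0 in any library, against 2619.7 to 3353 and 2736 to 3174 CPM in the cochlea. Schwann and satellite glia markers summed to 449 to 502 and 277 to 315 CPM in the vestibule, with at most 1 of 14 at 0, and 248 to 335 and 276 to 324 CPM in the cochlea. Mast cell markers summed to 1931 to 2242 and 332 to 588 CPM in the vestibule and 191 to 267 and 162 to 222 CPM in the cochlea, where 1 to 3 of the listed markers were at 0. The vestibular sums of cartilage and bone markers did not overlap either (heterozygotes 2579 to 3331 CPM, mutants 1609 to 2120 CPM). Endothelium and pericyte markers were at 181 to 258 and 101 to 161 CPM there, and melanocyte markers at 66.6 to 81.2 and 35.1 to 55.7 CPM. These 3 sums overlapped in the cochlea. Granulocyte markers were apart in the cochlea, at 43.1 to 68.4 and 9.29 to 25.2 CPM, and overlapped in the vestibule. Ganglion neuron markers were higher in the mutants of both organs, at 1706 to 1878 against 2466 to 2581 CPM in the cochlea and 1742 to 1922 against 2659 to 2781 CPM in the vestibule. Both vestibular replicate 1 libraries had more reads outside the listed genes (0.684% and 0.729%, against 0.119% to 0.127% in the other 4), and both cochlear replicate 3 libraries had fewer mitochondrially encoded transcripts (6736 and 6982 CPM against 22602 to 31593 CPM).

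**Figure D1:**
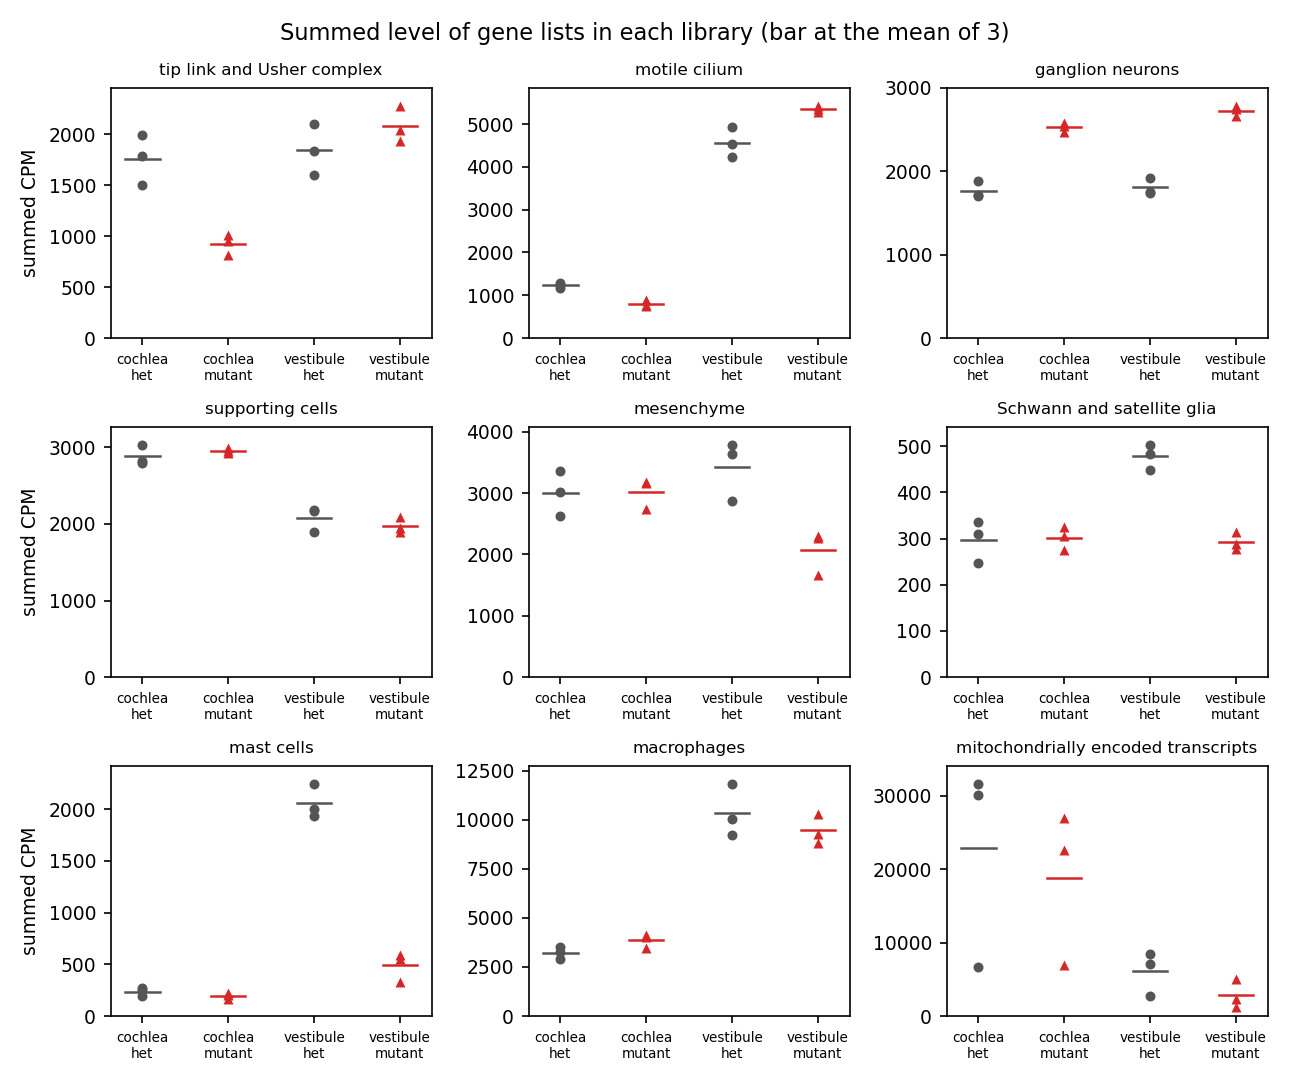
Summed CPM of 9 gene lists in each of the 12 libraries (points), by organ and genotype, with a bar at the mean of 3 and each vertical axis starting at 0. The tip link and motile cilium sums of the cochlear mutants lie below those of the cochlear heterozygotes and those of the vestibular mutants do not, while mesenchyme, Schwann and mast cell sums are lower in the vestibular mutants.

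The difference between organs was called for 461 of 14674 genes (3.14%) at a Benjamini-Hochberg (BH) adjusted p under 0.05 in limma, and 376 of these differed at least 2-fold. For 26 of the 461, all libraries of 1 genotype in an organ were under 1 CPM, so that the level filter there was met through the other genotype only. Tdo2, Clrn2, Erich5, Ofcc1 and Lypd1, described below, are among these 26. The cochlear change lay above the vestibular one for 104 genes (0.709%) and below it for 357 (2.43%). In the cochlea by itself 321 genes (2.19%) were higher and 455 (3.10%) lower in mutants, and in the vestibule 498 (3.39%) were higher and 251 (1.71%) lower. Among the 461 genes, 234 changed in the cochlea alone (46 higher, 188 lower), 135 in the vestibule alone (96 higher, 39 lower), 35 in opposite directions and 24 in the same direction to unequal extents. For the other 33 the difference was called and neither organ was. Passing the threshold in 1 organ was not by itself a difference: 307 genes called in the cochlea only and 379 called in the vestibule only had no called difference. Of the 235 genes called in both organs, 200 moved in the same direction and 35 in opposite directions. In 33 of these 35 the gene fell in the mutant cochlea and rose in the mutant vestibule. Same-numbered libraries of an organ deviated together, and with the replicate block 1955 differences were called (1012 above, 943 below), among them all 461. Of 14674 genes the block called 836 higher and 864 lower in the cochlea, and 1322 and 1525 in the vestibule. With the block, 47 of the 234 cochlea-alone genes and 23 of the 135 vestibule-alone genes were called in opposite directions, so that "alone" below means not called in the other organ in a fit without the block. Because RNA was pooled from many cells, fewer cells of a kind and less RNA per cell cannot be told apart in any of these values.

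**Figure D2:**
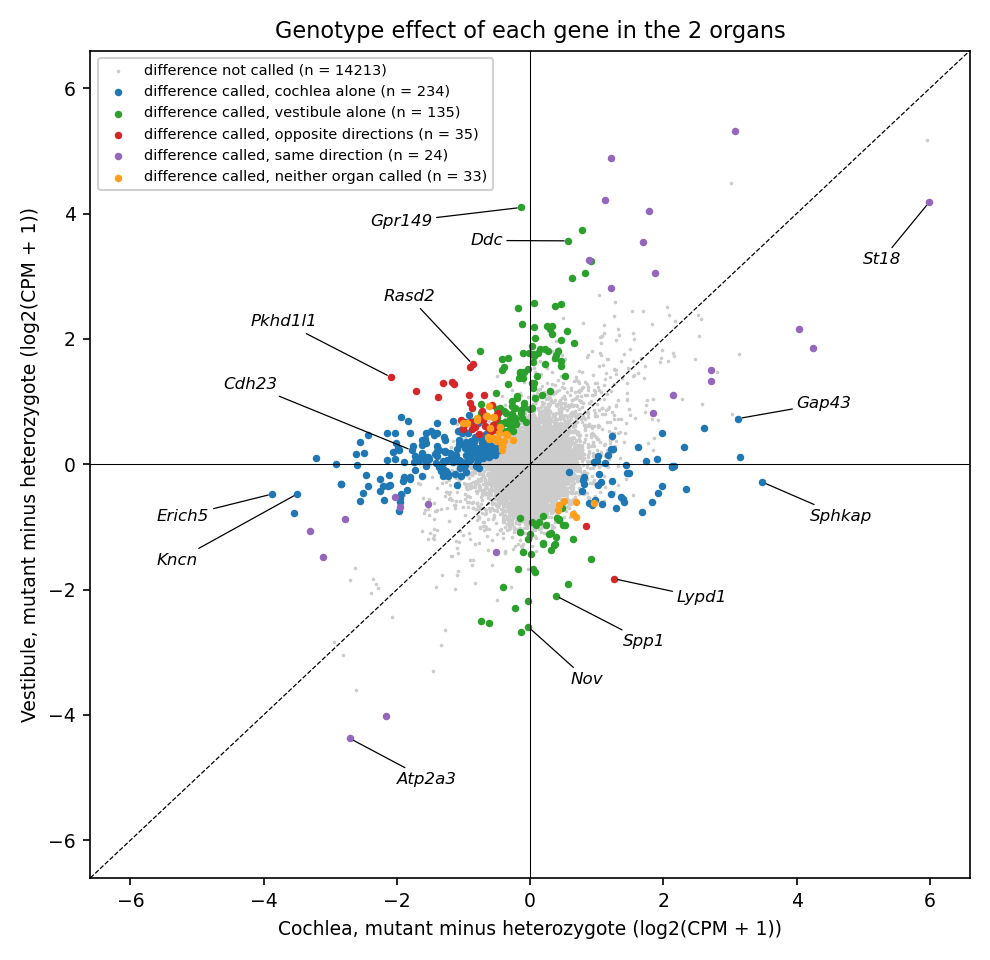
Cochlear change (horizontal axis) against vestibular change (vertical axis) of 14674 genes, both mutant minus heterozygote on log2(CPM + 1), coloured by class, with the dashed line where both organs change equally. The 35 opposite genes (red) are nearly all in the upper left part of the plot, lower in the mutant cochlea and higher in the mutant vestibule, and only Lypd1 and Sema3c are on the lower right side.

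Among genes of the mechanosensory hair bundle, falls were called in the cochlea and few changes in the vestibule. Of 53 tested bundle genes in 4 lists, 28 fell and none rose in the cochlea, while 2 fell and 4 rose in the vestibule (limma). With the block 35 fell in the cochlea, and 9 fell and 11 rose in the vestibule. The difference was called for 18 of the 53, all with the cochlear change below the vestibular one, against 2.43% of all genes in that direction. Median changes of the 53 were -0.65 in the cochlea and 0.00 in the vestibule, beside 0.05 and -0.06 over all genes tested. The count of 18 was 11 without cochlear mutant replicate 1, vestibular heterozygote replicate 2, vestibular mutant replicate 3 or both cochlear replicate 3 libraries, and 32 with the replicate block. The mesenchyme, cartilage, glial, endothelial, melanocyte and mast cell sums given above differed between genotypes without overlap in the vestibule and overlapped in the cochlea. Their part in the difference was not tested.

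Tip link and Usher complex genes led this group: 7 of 12 fell in the cochlea, 2 rose in the vestibule, and 7 differed between organs, 4 of them without cochlear mutant replicate 1 or without both cochlear replicate 3 libraries. Cdh23 (chr10:60302748-60696490, minus) encodes cadherin 23, the upper part of the tip link. It was at 148, 231 and 270.4 CPM in heterozygotes and 54.5, 58.5 and 70.3 CPM in mutants in the cochlea. Cdh23 in the vestibule was at 141, 158 and 183 CPM in heterozygotes and 172, 192 and 197 CPM in mutants. All cochlear mutants lay below all heterozygotes and the vestibular groups overlapped, with changes of -1.77 (SE 0.19) and 0.22 (SE 0.19). The difference for Cdh23 was -1.99 (SE 0.27, limma BH-adjusted p = 0.000627). Pcdh15 (chr10:73099342-74649737, plus), protocadherin 15, forms the lower part of the same link. In the cochlea it was at 277, 359 and 355 CPM in heterozygotes and 197, 216 and 183 CPM in mutants. Pcdh15 in the vestibule was at 101, 145 and 162 CPM in heterozygotes and 191, 259.7 and 284 CPM in mutants. The mutants lay wholly below in the cochlea and wholly above in the vestibule. Its changes of -0.72 (SE 0.19) and 0.85 (SE 0.19) were called in opposite directions. The difference for Pcdh15 was -1.58 (SE 0.27, limma BH-adjusted p = 0.00326). Pcdh15's cochlear call was lost without cochlear heterozygote 2 or 3, any cochlear mutant or both cochlear replicate 3 libraries, and with no filter on level (highest BH-adjusted p = 0.330). Pcdh15's vestibular call was lost without vestibular mutant 2 or 3, and with a variance per organ (highest BH-adjusted p = 0.0769). Clrn2 (clarin 2, chr5:45453751-45464149, plus) was at 2.41, 2.92 and 1.92 CPM in heterozygotes and 0.375, 0 and 0.116 CPM in mutants in the cochlea, where 1 mutant library held no read of it. Clrn2 in the vestibule was at 14.5, 20.0 and 20.3 CPM in heterozygotes and 17.3, 18.7 and 17.2 CPM in mutants. The cochlear groups were apart and the vestibular ones overlapped. The difference for Clrn2 was -1.53 (SE 0.31, limma BH-adjusted p = 0.0128). For Clrn2 this call was lost with pseudocount 4 (highest BH-adjusted p = 0.156). In the cochlea Clrn2 met the filter through the heterozygotes only, so its values are a description. Called differences in the list also included those of 3 genes added here after their values were seen. The ankle link receptor Adgrv1 changed by -1.44 and 0.47, SE 0.28 each. The difference for Adgrv1 was -1.91 (SE 0.40, limma BH-adjusted p = 0.0149). For Adgrv1 this call was lost without cochlear mutant 1 or both cochlear replicate 3 libraries (highest BH-adjusted p = 0.0610). Adgrv1's cochlear call was lost without both cochlear replicate 3 libraries (highest BH-adjusted p = 0.0515), while with the block it was opposite (limma BH-adjusted p = 0.000966 in the vestibule). The motor Myo7a changed by -0.71 and 0.10, SE 0.14 each. The difference for Myo7a was -0.81 (SE 0.20, limma BH-adjusted p = 0.0384). For Myo7a this call was lost without any cochlear heterozygote, cochlear mutant 1 or 2, vestibular heterozygote 1 or 2, any vestibular mutant, both vestibular replicate 1 libraries or both cochlear replicate 3 libraries, and with no filter on level (highest BH-adjusted p = 0.107). The scaffold Pdzd7 changed by -0.90 and 0.19, SE 0.20 each. The difference for Pdzd7 was -1.09 (SE 0.28, limma BH-adjusted p = 0.0472). For Pdzd7 this call was lost without cochlear heterozygote 2 or 3, any cochlear mutant, vestibular heterozygote 1 or 2, any vestibular mutant, both vestibular replicate 1 libraries or both cochlear replicate 3 libraries, and with pseudocount 4 or no filter on level (highest BH-adjusted p = 0.159). Pdzd7's cochlear call was lost without cochlear heterozygote 3, cochlear mutant 1 or both cochlear replicate 3 libraries (highest BH-adjusted p = 0.113). No difference was called for Clrn1, Cib2, Ush1c, Ush1g or Whrn, although with the block Clrn1 differed and rose in the vestibule alone (limma BH-adjusted p = 0.0241 for the difference).

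In the list of the transduction channel complex, in which the surface coat gene Pkhd1l1 was counted, 5 of 7 genes fell in the cochlea and 2 differed between organs. Pkhd1l1 (chr15:44457494-44601369, plus), which encodes a protein of the stereocilia surface coat, was at 615, 323 and 510.3 CPM in heterozygotes and 95.9, 91.6 and 147 CPM in mutants in the cochlea. In the vestibule, where it was scarce, it was at 2.81, 2.94 and 4.15 CPM in heterozygotes and 7.44, 8.71 and 16.0 CPM in mutants. The groups did not overlap in either organ, the changes of -2.09 (SE 0.28) and 1.39 (SE 0.28) were opposite, and the difference of -3.48 (SE 0.40, limma BH-adjusted p = 0.000216) was the largest of the 35 opposite genes. Tmc2 (chr2:130195194-130264445, plus), a pore subunit of the immature transduction channel, was at 75.1, 31.2 and 46.2 CPM in heterozygotes and 13.5, 8.52 and 13.4 CPM in mutants in the cochlea. Tmc2 in the vestibule was at 69.6, 82.4 and 83.9 CPM in heterozygotes and 54.9, 52.7 and 53.4 CPM in mutants, lower in all mutants of both organs. The difference for Tmc2 was -1.42 (SE 0.35, limma BH-adjusted p = 0.0408). For Tmc2 this call was lost without cochlear heterozygote 1 or 3, any cochlear mutant, any vestibular heterozygote, any vestibular mutant, both vestibular replicate 1 libraries or both cochlear replicate 3 libraries, and with pseudocount 4 or no filter on level (highest BH-adjusted p = 0.114), and with the block the vestibular fall was called as well (limma BH-adjusted p = 0.0104). Tomt, which helps to bring the channel to the tip, fell in the cochlea with no called difference (-1.27 and -0.50, SE 0.23 each). With the block Tomt fell in both organs and its difference was called (limma BH-adjusted p = 0.0294). Tmc1, the pore subunit of mature hair cells, also fell in the cochlea with no called difference (-1.06 and -0.24, SE 0.28 each). Tmc1's cochlear call was lost without cochlear heterozygote 1 or 3, cochlear mutant 1 or 2, vestibular heterozygote 2 or both cochlear replicate 3 libraries, and with pseudocount 4, no filter on level or a variance per organ (highest BH-adjusted p = 0.218).

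Of 19 genes of the actin core and stereocilia tips, 10 fell in the cochlea, 1 fell in the vestibule and 5 differed between organs, all with the cochlear change below. The count of 5 was 3 without vestibular heterozygote replicate 2 or vestibular mutant replicate 3, and 11 with the block. Grxcr1 (chr5:68031835-68166398, plus), a glutaredoxin-like protein needed for the width of stereocilia, was at 79.0, 70.4 and 59.7 CPM in heterozygotes and 30.7, 25.3 and 27.2 CPM in mutants in the cochlea. Grxcr1 in the vestibule was at 40.6, 48.2 and 47.8 CPM in heterozygotes and 63.3, 59.9 and 61.5 CPM in mutants. Mutants lay wholly below heterozygotes in the cochlea and wholly above them in the vestibule. The difference for Grxcr1 was -1.72 (SE 0.20, limma BH-adjusted p = 0.000230). Without the block the vestibular change of 0.43 (SE 0.14) was not called (limma BH-adjusted p = 0.101), and with it the gene was opposite (limma BH-adjusted p = 0.0109). The tip motor Myo3b (chr2:70039126-70429198, plus) was at 207, 150.2 and 165 CPM in heterozygotes and 57.0, 63.6 and 74.1 CPM in mutants in the cochlea. Myo3b in the vestibule was at 191, 218 and 242 CPM in heterozygotes and 232, 275 and 295 CPM in mutants, where the groups overlapped. The difference for Myo3b was -1.70 (SE 0.22, limma BH-adjusted p = 0.000484). Myo15 (chr11:60469339-60528369, plus), which carries elongation factors to the tips, was at 40.4, 53.9 and 51.9 CPM in heterozygotes and 10.6, 17.0 and 20.4 CPM in mutants in the cochlea, all mutants below. Myo15 in the vestibule was at 309, 299 and 355 CPM in heterozygotes and 428, 301 and 324 CPM in mutants, overlapping. The difference for Myo15 was -1.70 (SE 0.29, limma BH-adjusted p = 0.00338). Myo1h, of which 25.8% of exon bases overlap another gene, so that its reads are uncertain, changed by -1.41 (SE 0.21) and 0.02 (SE 0.21). The difference for Myo1h was -1.42 (SE 0.30, limma BH-adjusted p = 0.0154). For Myo1h this call was lost without vestibular heterozygote 2 or vestibular mutant 3, and with pseudocount 4 (highest BH-adjusted p = 0.0897). The fifth was Gpsm2, a polarity protein of the bundle (-0.43 and 0.23, SE 0.12 each), called in neither organ, and with the block called lower in the cochlea (limma BH-adjusted p = 0.00638). The difference for Gpsm2 was -0.66 (SE 0.17, limma BH-adjusted p = 0.0497). For Gpsm2 this call was lost without any cochlear heterozygote, any cochlear mutant, any vestibular heterozygote, any vestibular mutant, both vestibular replicate 1 libraries or both cochlear replicate 3 libraries, and with pseudocount 0.25 or no filter on level (highest BH-adjusted p = 0.141). Myo3a, a tip motor related to Myo3b, fell in both organs (-1.45 and -1.18, SE 0.21 each) without a called difference.

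Among 15 genes of the bundle surface, taper and kinocilium, 6 fell in the cochlea, 1 rose in the vestibule and 4 differed between organs. That count was 2 without any 1 of the cochlear mutants, vestibular heterozygote replicate 2, vestibular mutant replicate 2 or 3, or both cochlear replicate 3 libraries, and 8 with the block. Kncn (chr4:115884400-115889526, plus) encodes kinocilin, a protein of the kinocilium and the bundle's base, and was at 59.3, 41.7 and 42.8 CPM in heterozygotes and 2.37, 3.87 and 3.82 CPM in mutants in the cochlea. Kncn in the vestibule was at 171, 154 and 150.4 CPM in heterozygotes and 129, 104 and 110.4 CPM in mutants. Mutants were wholly lower in both organs, but by 3.49 in the cochlea and 0.47 in the vestibule (not called, and called with the block at a limma BH-adjusted p of 0.0463). The difference for Kncn was -3.02 (SE 0.25, limma BH-adjusted p = 1.58e-05). Strc (chr2:121363728-121387168, minus), stereocilin of the horizontal top connectors, was at 63.3, 33.9 and 49.8 CPM in heterozygotes and 4.12, 4.52 and 9.96 CPM in mutants in the cochlea. Strc in the vestibule was at 199.9, 192 and 219 CPM in heterozygotes and 151, 157 and 184 CPM in mutants. The cochlear mutants were far below the heterozygotes and the vestibular mutants were just below theirs, with changes of -2.84 (SE 0.26) and -0.31 (SE 0.26). The difference for Strc was -2.53 (SE 0.36, limma BH-adjusted p = 0.000954). Elmod1, a regulator of small GTPases in the bundle, had a smaller difference of -0.94 (SE 0.23, limma BH-adjusted p = 0.0379). For Elmod1 this call was lost without any cochlear mutant, any vestibular heterozygote, any vestibular mutant, both vestibular replicate 1 libraries or both cochlear replicate 3 libraries, and with no filter on level (highest BH-adjusted p = 0.0908). Elmod1's cochlear call was lost without cochlear heterozygote 1, any cochlear mutant or both cochlear replicate 3 libraries, and with a variance per organ (highest BH-adjusted p = 0.0957). Tmc3 rose in the vestibule alone (1.73, SE 0.28 against 0.06 (SE 0.28)). The difference for Tmc3 was -1.67 (SE 0.40, limma BH-adjusted p = 0.0327). For Tmc3 this call was lost without cochlear heterozygote 1 or 3, any cochlear mutant, vestibular heterozygote 2, vestibular mutant 2 or 3 or both cochlear replicate 3 libraries, and with no filter on level (highest BH-adjusted p = 0.159), and 43.9% of its exon bases overlap another gene.

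**Figure D3:**
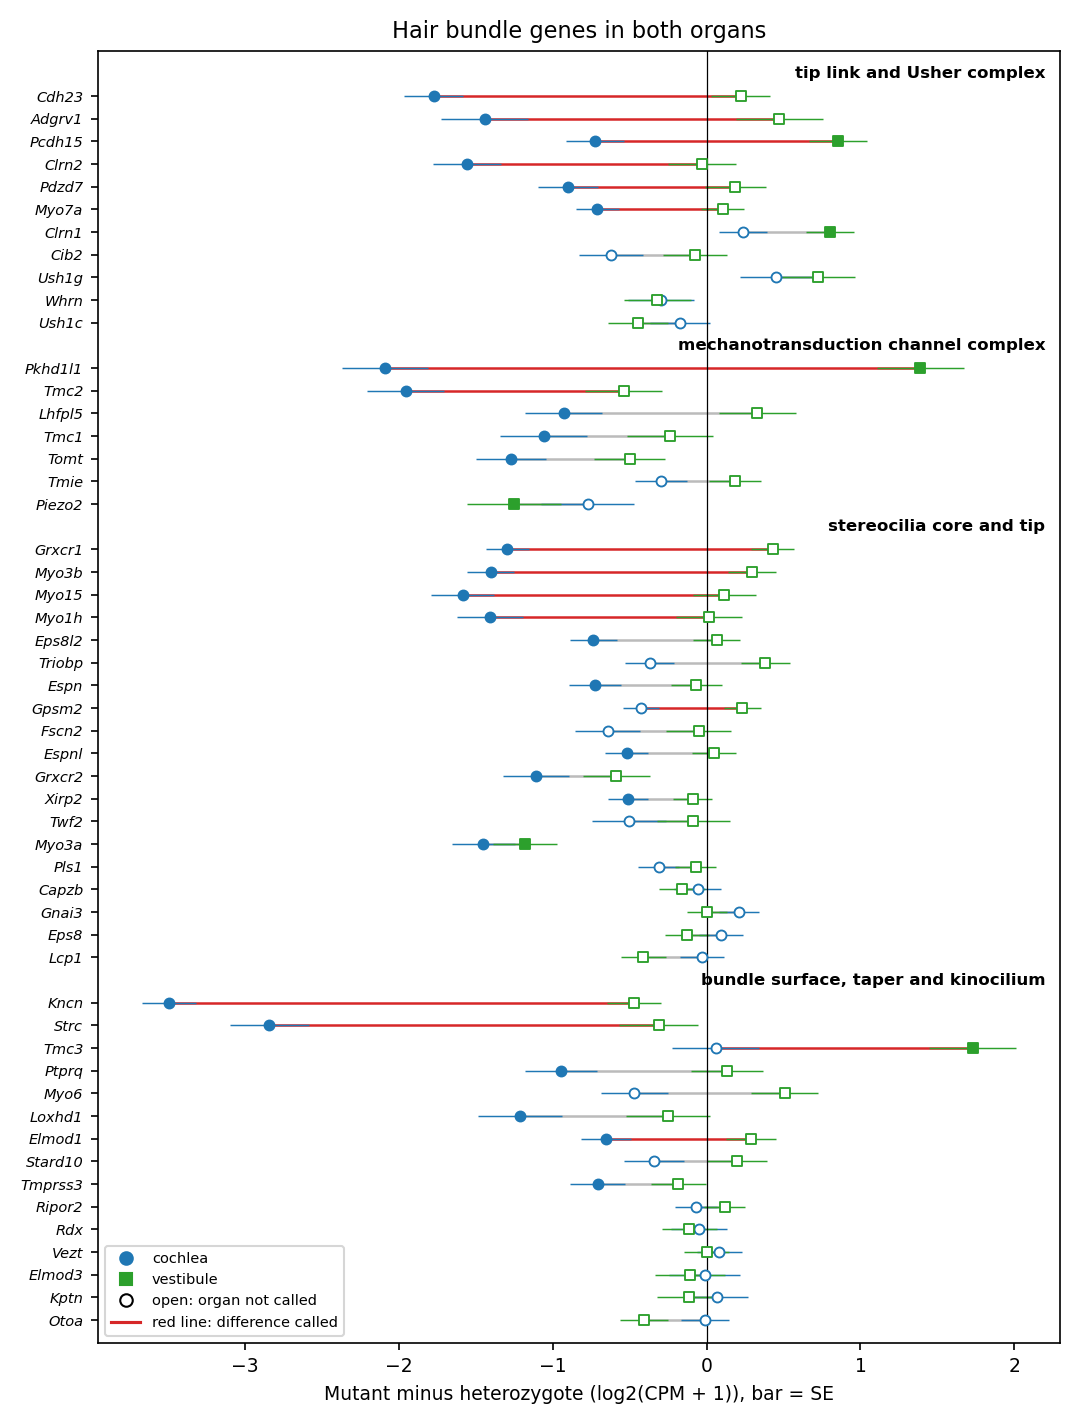
Changes of 52 of the 53 tested hair bundle genes in the cochlea (blue circles) and vestibule (green squares), mutant minus heterozygote on log2(CPM + 1), with bars of 1 SE, filled where called in that organ, and red connecting lines where the difference was called. The red lines, 17 in all, run from a lower cochlear to a higher vestibular value.

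Genes of the ciliary axoneme and its motility showed the same arrangement. Of 43 genes tested in both organs, 14 fell in the cochlea and none rose (limma). In the vestibule 3 of these 43 rose and none fell. The difference between organs was called for 14, all with the cochlear change below. Median changes were -0.37 in the cochlea and 0.17 in the vestibule, and the summed level was 1172 to 1291 CPM in heterozygotes against 759 to 881 in mutants of the cochlea, and 4221 to 4924 against 5281 to 5419.5 CPM in the vestibule. The count of 14 was 9 without vestibular mutant replicate 3 or without both cochlear replicate 3 libraries. With the block 22 differed, all in that direction, and 12 of the 43 rose in the vestibule. Cfap206 (chr4:34688559-34730206, minus), a protein of the base of radial spokes, was at 88.2, 72.1 and 75.9 CPM in heterozygotes and 12.0, 16.3 and 12.4 CPM in mutants in the cochlea. Cfap206 in the vestibule was at 212, 181 and 184 CPM in heterozygotes and 182, 161 and 166 CPM in mutants. The mutants were wholly lower in the cochlea and overlapped the heterozygotes in the vestibule. The difference for Cfap206 was -2.28 (SE 0.20, limma BH-adjusted p = 2.34e-05). Ccdc65 (chr15:98708207-98723336, plus) and Drc7 (chr8:95055103-95078141, plus) encode parts of the nexin-dynein regulatory complex, which ties neighbouring microtubule doublets. Ccdc65 was at 36.5, 35.7 and 36.4 CPM in heterozygotes and 10.1, 12.1 and 14.0 CPM in mutants in the cochlea. Ccdc65 in the vestibule was at 153, 146 and 167 CPM in heterozygotes and 174, 159 and 158 CPM in mutants. Drc7 in the cochlea was at 6.86, 5.71 and 6.62 CPM in heterozygotes and 1.37, 1.03 and 1.62 CPM in mutants. Drc7 in the vestibule was at 96.5, 91.4 and 98.9 CPM in heterozygotes and 105, 101 and 91.6 CPM in mutants. For both genes the cochlear groups were apart and the vestibular groups overlapped, with differences of -1.59 (SE 0.19, limma BH-adjusted p = 0.000256) and -1.72 (SE 0.22, limma BH-adjusted p = 0.000526). Tekt1 (chr11:72344722-72362442, minus), a tektin filament protein inside the doublets, was at 29.9, 34.5 and 31.1 CPM in heterozygotes and 14.0, 17.4 and 17.1 CPM in mutants in the cochlea, all mutants below. Tekt1 in the vestibule was at 199, 205 and 216 CPM in heterozygotes and 249.9, 269 and 248 CPM in mutants, all mutants above. The difference for Tekt1 was -1.24 (SE 0.17, limma BH-adjusted p = 0.000824). With the block the vestibular rise was called (limma BH-adjusted p = 0.0280), which makes it opposite.

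**Figure D4:**
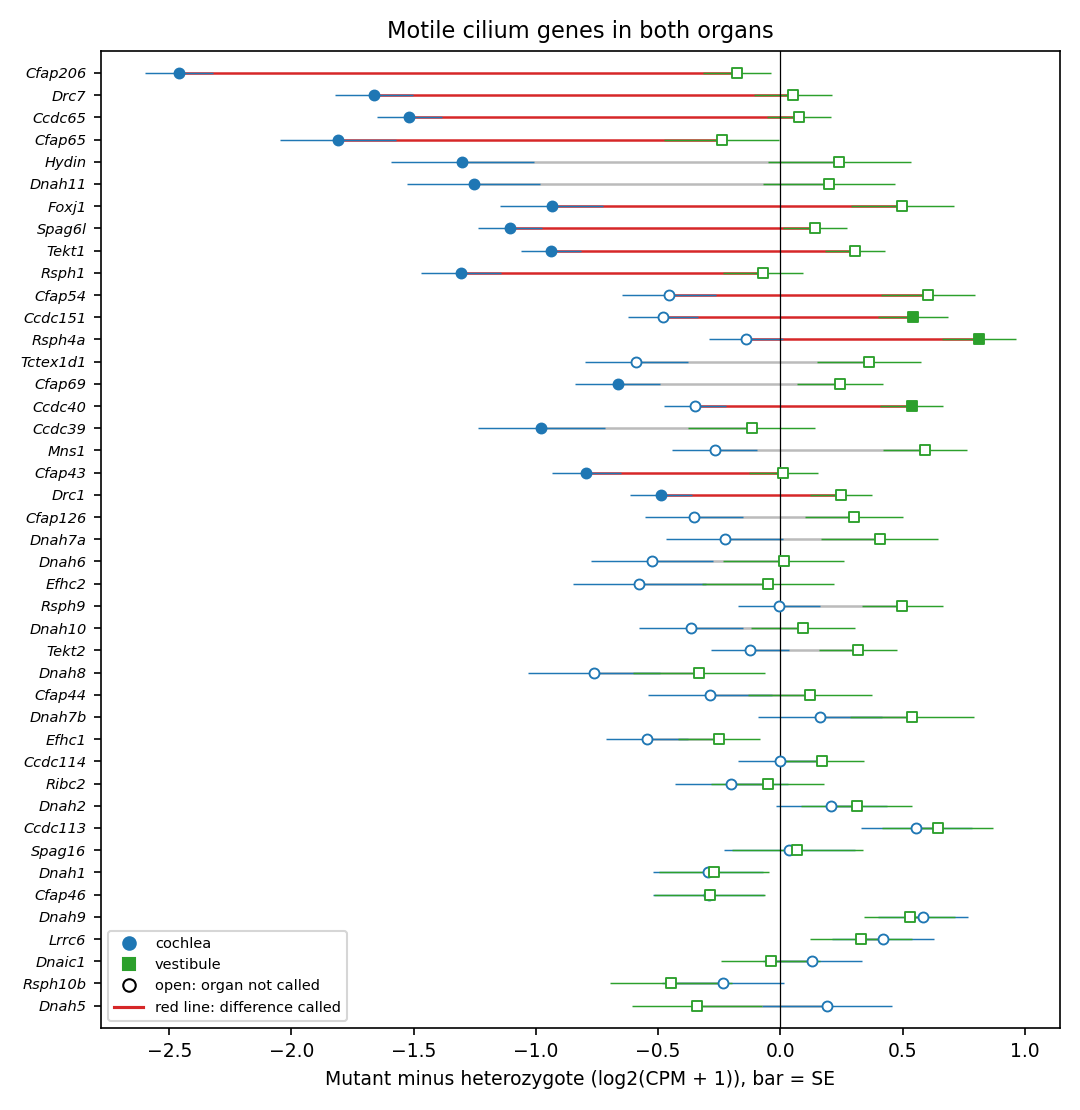
Changes of the 43 tested cilium genes in the cochlea (blue circles) and vestibule (green squares) on log2(CPM + 1), with bars of 1 SE, filled where called in that organ, and red connecting lines for the 14 called differences. In these 14 the cochlear value lies to the left of the vestibular value.

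The opposite class reached beyond the bundle into metabolism, calcium handling and signalling. For all 35 genes the mutant and heterozygous libraries did not overlap in either organ. Over all genes tested groups did not overlap for 19.0% in the cochlea and 22.1% in the vestibule. The class required a call in both organs, which favours groups that are apart, so the lack of overlap is no separate support. Psat1 (chr19:15904678-15947337, minus) encodes phosphoserine aminotransferase of serine synthesis. It was at 837, 737 and 841 CPM in heterozygotes and 313, 306 and 305 CPM in mutants in the cochlea. Psat1 in the vestibule was at 328, 346 and 299 CPM in heterozygotes and 722, 658 and 662 CPM in mutants. The 2 changes, -1.38 (SE 0.13) and 1.07 (SE 0.13), gave a difference of -2.45 (SE 0.18, limma BH-adjusted p = 1.38e-05), the smallest p of all genes. Rasd2 (chr8:75213944-75224113, plus), a small GTPase of the Ras family, was at 362, 325 and 327 CPM in heterozygotes and 158, 211 and 191 CPM in mutants in the cochlea. Rasd2 in the vestibule was at 264, 239 and 240.3 CPM in heterozygotes and 799, 748 and 704 CPM in mutants. Mutants were lower in the cochlea by 0.86 and higher in the vestibule by 1.59. The difference for Rasd2 was -2.46 (SE 0.19, limma BH-adjusted p = 1.43e-05). Pvalb (chr15:78191114-78206400, minus), the calcium buffer parvalbumin, was at 84.5, 81.0 and 66.1 CPM in heterozygotes and 43.0, 35.2 and 44.8 CPM in mutants in the cochlea. Pvalb in the vestibule was at 55.3, 58.3 and 52.5 CPM in heterozygotes and 173, 177 and 145 CPM in mutants. Its changes were -0.90 (SE 0.14) and 1.56 (SE 0.14). The difference for Pvalb was -2.45 (SE 0.20, limma BH-adjusted p = 1.52e-05). Slc52a3 (chr2:151996511-152009258, plus), a riboflavin transporter, was at 200.2, 180.3 and 211 CPM in heterozygotes and 75.7, 78.8 and 81.1 CPM in mutants in the cochlea. Slc52a3 in the vestibule was at 216, 150.3 and 139 CPM in heterozygotes and 523, 367 and 355 CPM in mutants, changes of -1.31 (SE 0.18) and 1.30 (SE 0.18). Its fall and its rise were of nearly the same size. The difference for Slc52a3 was -2.61 (SE 0.25, limma BH-adjusted p = 3.60e-05).

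Mfge8 (chr7:79133768-79149060, minus), a secreted bridge to phosphatidylserine on dying cells, was at 18.8, 29.2 and 25.0 CPM in heterozygotes and 5.75, 7.36 and 6.95 CPM in mutants in the cochlea. Mfge8 in the vestibule was at 97.0, 75.7 and 67.7 CPM in heterozygotes and 225, 166 and 153 CPM in mutants. The difference for Mfge8 was -2.87 (SE 0.28, limma BH-adjusted p = 4.26e-05). Fer1l6 (chr15:58510048-58665092, plus), a relative of the ribbon synapse protein otoferlin, was at 119, 69.8 and 75.6 CPM in heterozygotes and 35.7, 43.0 and 33.9 CPM in mutants in the cochlea. Fer1l6 in the vestibule was at 5.80, 3.90 and 3.88 CPM in heterozygotes and 11.2, 14.2 and 12.2 CPM in mutants. The difference for Fer1l6 was -2.48 (SE 0.30, limma BH-adjusted p = 0.000373). Both genes fell in the cochlea and rose in the vestibule, and all 3 mutants of an organ were on the same side. Hs3st3b1, a heparan sulfate sulfotransferase (chr11:63885792-63922290, minus), changed by -1.14 and 1.29, SE 0.25 each, Cdk15, a kinase of the cyclin-dependent family (chr1:59256906-59352993, plus), by -0.92 (SE 0.23) and 1.11 (SE 0.23), and Fam78b (chr1:167001417-167091302, plus) by -0.90 (SE 0.18) and 0.97 (SE 0.18). Hs3st3b1's cochlear call was lost without cochlear heterozygote 1 or 3, cochlear mutant 2 or both cochlear replicate 3 libraries (highest BH-adjusted p = 0.0872). Cdk15's cochlear call was lost without cochlear heterozygote 1 or 3, any cochlear mutant or both cochlear replicate 3 libraries (highest BH-adjusted p = 0.152). Fam78b's cochlear call was lost without both cochlear replicate 3 libraries (highest BH-adjusted p = 0.0989). The vestibular calls of these 3 were lost without both vestibular replicate 1 libraries (highest BH-adjusted p = 0.0681) for Hs3st3b1, without vestibular heterozygote 2 or vestibular mutant 2 (highest BH-adjusted p = 0.0520) for Cdk15 and with a variance per organ (highest BH-adjusted p = 0.0521) for Fam78b. Their differences stayed called in these fits.

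The reverse pattern, higher in the mutant cochlea and lower in the mutant vestibule, was called for 2 genes. Lypd1 (chr1:125867622-125913101, minus), a modulator of nicotinic receptors with 17.1% of exon bases in overlap, was at 18.9, 16.6 and 22.4 CPM in heterozygotes and 40.7, 59.7 and 42.9 CPM in mutants in the cochlea. In the vestibule it was at 2.10, 3.86 and 4.12 CPM in heterozygotes and 0.158, 0.382 and 0.0819 CPM in mutants, the mutant values standing for a few reads each. Its changes were 1.25 (SE 0.24) and -1.83 (SE 0.24). The difference for Lypd1 was 3.08 (SE 0.34, limma BH-adjusted p = 0.000184). In the vestibule Lypd1 met the level filter through the heterozygotes only, so its values are a description. Sema3c (chr5:17574281-17730268, plus), a secreted axon guidance signal, was at 35.4, 38.6 and 31.8 CPM in heterozygotes and 63.0, 65.2 and 63.8 CPM in mutants in the cochlea. Sema3c in the vestibule was at 10.8, 19.0 and 12.4 CPM in heterozygotes and 4.85, 7.60 and 7.08 CPM in mutants. The difference for Sema3c was 1.83 (SE 0.29, limma BH-adjusted p = 0.00215). Sema3c's cochlear call was lost without cochlear heterozygote 1 or 3, any cochlear mutant or both cochlear replicate 3 libraries (highest BH-adjusted p = 0.219). Sema3c's vestibular call was lost without vestibular heterozygote 2, and with a variance per organ (highest BH-adjusted p = 0.0934). The 23 opposite genes outside the 12 with the largest differences all fell in the cochlea and rose in the vestibule, with cochlear changes of -1.03 to -0.49 and vestibular changes of 0.48 to 1.11. They included Pcdh15, the calcium pump Atp2b3, the membrane-binding protein Anxa4 and the transporter-like Slc7a14, described with their lists, and Casz1, a zinc finger factor of neural differentiation (-0.67 and 0.61, SE 0.13 each).

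**Figure D5:**
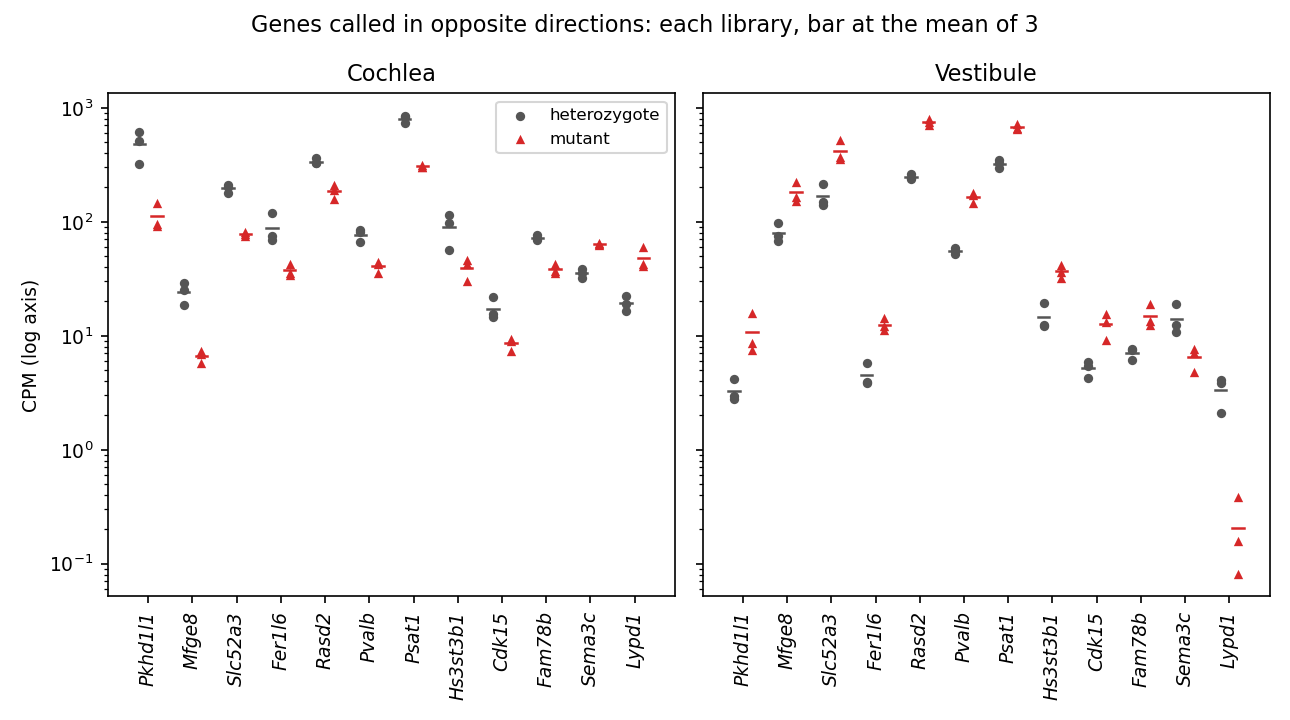
CPM (log axis) of the 12 opposite genes with the largest differences in each cochlear and vestibular library, heterozygotes as grey circles and mutants as red triangles, with a bar at the mean of 3. For 10 genes the red points lie below the grey ones in the cochlea and above them in the vestibule, and Sema3c and Lypd1 show the reverse.

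Other enzymes of serine and one-carbon metabolism were tested with Psat1 in a list of 19 genes that includes targets of the stress factor ATF4. In that list 2 genes fell in the cochlea, 2 rose in the vestibule and 3 differed, 1 of them when both cochlear replicate 3 libraries were left out. Psph (chr5:129765558-129787449, minus), the phosphatase of the last step of serine synthesis, was at 89.7, 142 and 141 CPM in heterozygotes and 65.2, 67.2 and 64.4 CPM in mutants in the cochlea, all mutants below. Psph in the vestibule was at 19.9, 19.3 and 19.5 CPM in heterozygotes and 27.3, 23.1 and 19.2 CPM in mutants, overlapping. The difference for Psph was -1.10 (SE 0.25, limma BH-adjusted p = 0.0245). For Psph this call was lost without cochlear heterozygote 2 or 3, any cochlear mutant, vestibular heterozygote 2, vestibular mutant 1 or 2, both vestibular replicate 1 libraries or both cochlear replicate 3 libraries (highest BH-adjusted p = 0.142). Psph's cochlear call was lost without both cochlear replicate 3 libraries (highest BH-adjusted p = 0.115), and 10.4% of its exon bases overlap another gene. Mthfd2 (chr6:83305691-83325908, minus), a mitochondrial enzyme of the folate cycle, was at 40.5, 34.7 and 38.1 CPM in heterozygotes and 32.2, 40.1 and 30.8 CPM in mutants in the cochlea, overlapping. Mthfd2 in the vestibule was at 27.8, 24.6 and 25.3 CPM in heterozygotes and 55.5, 45.5 and 44.2 CPM in mutants, all mutants above. The difference for Mthfd2 was -1.01 (SE 0.21, limma BH-adjusted p = 0.0149). For Mthfd2 this call was lost without both cochlear replicate 3 libraries (highest BH-adjusted p = 0.0852). Phgdh, the first enzyme of the serine route, did not pass (-0.51 and 0.15, SE 0.18 each), nor did Asns (-0.17 and 0.39) or Atf4 itself (-0.00 and -0.17), and of these Asns differed with the block (limma BH-adjusted p = 0.0460).

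Calcium handling differed between organs for 6 of 17 genes, 4 with the cochlear change below, and for 10 with the block, 8 of them below. Pvalb was described above. Atp2b3 (chrX:73503086-73571005, plus), a plasma membrane calcium pump, was at 55.0, 44.6 and 52.5 CPM in heterozygotes and 23.1, 35.0 and 28.8 CPM in mutants in the cochlea. Atp2b3 in the vestibule was at 13.4, 19.8 and 18.7 CPM in heterozygotes and 28.8, 26.5 and 30.3 CPM in mutants, opposite by its calls. The difference for Atp2b3 was -1.51 (SE 0.26, limma BH-adjusted p = 0.00366). Atp2b3's cochlear call was lost without cochlear heterozygote 1 or 3, cochlear mutant 1 or 3 or both cochlear replicate 3 libraries (highest BH-adjusted p = 0.143). Atp2b3's vestibular call was lost without cochlear mutant 3, any vestibular heterozygote, any vestibular mutant, both vestibular replicate 1 libraries or both cochlear replicate 3 libraries, and with no filter on level or a variance per organ (highest BH-adjusted p = 0.186). The pump of the stereocilia, Atp2b2 (chr6:113743831-114042613, minus), was at 228, 197 and 204 CPM in heterozygotes and 98.4, 146 and 137 CPM in mutants in the cochlea, all mutants below. Atp2b2 in the vestibule was at 425, 399 and 444 CPM in heterozygotes and 514, 468 and 459.8 CPM in mutants, all mutants just above. The difference for Atp2b2 was -0.92 (SE 0.21, limma BH-adjusted p = 0.0245). For Atp2b2 this call was lost without cochlear heterozygote 1, cochlear mutant 1, vestibular heterozygote 2, vestibular mutant 1 or 2 or both cochlear replicate 3 libraries (highest BH-adjusted p = 0.0773). S100a1 (chr3:90511034-90514392, minus), a calcium sensor also used as a supporting cell marker, was at 60.2, 56.7 and 52.4 CPM in heterozygotes and 33.7, 31.7 and 33.9 CPM in mutants in the cochlea. S100a1 in the vestibule was at 666, 676 and 685 CPM in heterozygotes and 701, 758 and 718 CPM in mutants. The mutants were wholly lower in the cochlea and just above in the vestibule. The difference for S100a1 was -0.85 (SE 0.15, limma BH-adjusted p = 0.00512). It was the only one of the 22 supporting cell markers with a called difference, and with the block 8 of the 22 differed (6 with the cochlear change above and 2 below). Atp2a3 (chr11:72961169-72993044, plus), a calcium pump of the endoplasmic reticulum, fell in both organs, but more in the vestibule. It was at 23.8, 14.6 and 22.0 CPM in heterozygotes and 2.12, 1.29 and 3.47 CPM in mutants in the cochlea. Atp2a3 in the vestibule was at 486, 433 and 461 CPM in heterozygotes and 19.0, 23.8 and 21.0 CPM in mutants, changes of -2.71 (SE 0.23) and -4.38 (SE 0.23). The difference of 1.67 (SE 0.32, limma BH-adjusted p = 0.00854) was not kept in all settings. For Atp2a3 this call was lost with pseudocount 0.25 or edgeR (highest BH-adjusted p = 0.0724).

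At the ribbon synapse, 3 of 19 genes differed, all with the cochlear change below, and the count was 1 without both cochlear replicate 3 libraries and 8 with the block. Ctbp2 (chr7:132987563-133124354, minus), which gives the ribbon protein RIBEYE, was at 67.8, 60.0 and 73.3 CPM in heterozygotes and 42.6, 39.4 and 41.5 CPM in mutants in the cochlea. Ctbp2 in the vestibule was at 148, 145 and 161 CPM in heterozygotes and 209, 165 and 162 CPM in mutants. The mutants were wholly lower in the cochlea and just above in the vestibule. The difference for Ctbp2 was -0.92 (SE 0.18, limma BH-adjusted p = 0.0112), and both this call and the cochlear one were lost without both cochlear replicate 3 libraries (highest BH-adjusted p = 0.0668). Slc17a8 (chr10:89574020-89621253, minus), the vesicular glutamate transporter of inner hair cells, was at 83.1, 61.3 and 81.8 CPM in heterozygotes and 33.7, 35.9 and 42.6 CPM in mutants in the cochlea. Slc17a8 in the vestibule was at 961, 1198 and 1326 CPM in heterozygotes and 1057, 1169.6 and 1153 CPM in mutants, where the groups overlapped. The difference for Slc17a8 was -0.95 (SE 0.22, limma BH-adjusted p = 0.0280). For Slc17a8 this call was lost without cochlear heterozygote 1 or 3, cochlear mutant 1 or 2, vestibular heterozygote 2, vestibular mutant 2 or 3 or both cochlear replicate 3 libraries (highest BH-adjusted p = 0.0873). Syt7 (chr19:10389090-10453180, plus), a calcium sensor of vesicle replenishment, rose in the vestibule alone: it was at 82.3, 101 and 85.9 CPM in heterozygotes and 62.2, 86.2 and 79.3 CPM in mutants in the cochlea. Syt7 in the vestibule was at 33.0, 43.7 and 40.2 CPM in heterozygotes and 63.8, 82.6 and 73.6 CPM in mutants. The difference for Syt7 was -1.14 (SE 0.23, limma BH-adjusted p = 0.0101). The sensor of hair cell release, Otof, fell in the cochlea (-0.89, SE 0.19) with a vestibular change of -0.06 (SE 0.19). Otof's cochlear call was lost without cochlear mutant 2 (highest BH-adjusted p = 0.0620). Its difference was called with the block only (limma BH-adjusted p = 0.000833, against 0.132 without it). Snap25, a general part of neuronal release, rose in both (0.75 and 1.18, SE 0.13 each), with a difference called by the block alone (limma BH-adjusted p = 0.0288).

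Nerve fibres from the brain stem reach hair cells at efferent synapses, whose receptor joins the subunits CHRNA9 and CHRNA10. Chrna9 (chr5:65934921-65977326, plus) was at 33.8, 28.5 and 33.6 CPM in heterozygotes and 6.37, 7.74 and 7.18 CPM in mutants in the cochlea. Chrna9 in the vestibule was at 69.0, 76.5 and 74.7 CPM in heterozygotes and 50.8, 51.1 and 50.4 CPM in mutants. It fell in both, more in the cochlea (-2.03 and -0.52, SE 0.14 each). The difference for Chrna9 was -1.50 (SE 0.19, limma BH-adjusted p = 0.000484). Chrna9's vestibular call was lost without any vestibular heterozygote, any vestibular mutant, both vestibular replicate 1 libraries or both cochlear replicate 3 libraries, and with median-of-ratios rescaling or a variance per organ (highest BH-adjusted p = 0.167). Chrna10 (chr7:102111266-102116828, minus) was at 89.9, 66.4 and 61.8 CPM in heterozygotes and 19.4, 26.3 and 22.1 CPM in mutants in the cochlea. Chrna10 in the vestibule was at 288, 259.6 and 247 CPM in heterozygotes and 327, 271 and 262 CPM in mutants. Chrna10 fell in the cochlea alone. The difference for Chrna10 was -1.74 (SE 0.23, limma BH-adjusted p = 0.000496). Another gene overlaps 39.0% of its exon bases, so its reads are uncertain. Lrrtm4, a synapse-organizing adhesion protein, was called higher in the cochlea (1.23, SE 0.27) and not in the vestibule (-0.27, SE 0.27), and its difference of 1.49 (SE 0.39, limma BH-adjusted p = 0.0495) was not kept in all settings. For Lrrtm4 this call was lost without any cochlear heterozygote, any cochlear mutant, any vestibular heterozygote, vestibular mutant 1 or 3, both vestibular replicate 1 libraries or both cochlear replicate 3 libraries, and with pseudocount 0.25, no filter on level, median-of-ratios rescaling, quantile normalization or edgeR (highest BH-adjusted p = 0.190). Lrrtm4's cochlear call was lost without cochlear heterozygote 2 or 3, cochlear mutant 1 or both cochlear replicate 3 libraries (highest BH-adjusted p = 0.128), and 25.1% of its exon bases are shared.

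Genes known from outer hair cells, the amplifying cells of the cochlea, fell in 5 of 14 cases in the cochlea and in 4 of 14 in the vestibule (9 with the block), and 5 differed between organs. Elfn1 (chr5:139907943-139974722, plus), a synaptic adhesion protein, was at 28.1, 28.9 and 26.4 CPM in heterozygotes and 1.12, 1.94 and 1.39 CPM in mutants in the cochlea. Elfn1 in the vestibule was at 116, 58.0 and 62.8 CPM in heterozygotes and 60.5, 34.1 and 39.7 CPM in mutants, where the groups overlapped. The difference for Elfn1 was -2.77 (SE 0.37, limma BH-adjusted p = 0.000535), and its vestibular change of -0.78 (SE 0.26) was called lower with the block (limma BH-adjusted p = 0.000951). Strip2 (chr6:29917012-29959681, plus), part of a phosphatase complex, was at 298, 112 and 197 CPM in heterozygotes and 28.6, 26.2 and 40.3 CPM in mutants in the cochlea. Strip2 in the vestibule was at 10.2, 12.1 and 13.2 CPM in heterozygotes and 5.91, 6.88 and 10.1 CPM in mutants. The difference for Strip2 was -1.96 (SE 0.41, limma BH-adjusted p = 0.0154). For Strip2 this call was lost without cochlear mutant 2 (highest BH-adjusted p = 0.0501). It was lower in all mutants of both organs, and with the block the vestibular fall was called too (limma BH-adjusted p = 0.0386). Ldb3, a protein of actin-linked structures (chr14:34526603-34588682, minus), fell in both organs, more in the cochlea (-2.78 and -0.88, SE 0.22 each, difference -1.90 (SE 0.31, limma BH-adjusted p = 0.00252)). Ldb3's vestibular call was lost without vestibular heterozygote 2 or 3, any vestibular mutant or both vestibular replicate 1 libraries, and with pseudocount 0.25 (highest BH-adjusted p = 0.122). Sri (chr5:8046078-8069379, plus), the calcium-binding protein sorcin, fell in the vestibule alone. It was at 44.7, 44.2 and 47.7 CPM in heterozygotes and 43.7, 43.2 and 46.0 CPM in mutants in the cochlea, overlapping. Sri in the vestibule was at 165, 136 and 145 CPM in heterozygotes and 72.5, 58.6 and 63.2 CPM in mutants, all mutants below. The difference for Sri was 1.15 (SE 0.18, limma BH-adjusted p = 0.00163). The count of 4 with the cochlear change below was 2 without cochlear mutant replicate 2.

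Of 11 genes known from inner hair cells, the main sensory cells of the cochlea, 5 fell in the cochlea and 5 differed, 4 with the cochlear change below, and 9 differed with the block. That 4 was 2 without cochlear mutant replicate 1 or 2, vestibular heterozygote replicate 2, or vestibular mutant replicate 2 or 3. Nrxn3 (chr12:88722876-90334935, plus), a presynaptic adhesion protein, was at 392, 326 and 329 CPM in heterozygotes and 146, 147 and 132 CPM in mutants in the cochlea. Nrxn3 in the vestibule was at 332, 456 and 465 CPM in heterozygotes and 373, 436 and 464 CPM in mutants. Only the cochlear groups were apart. The difference for Nrxn3 was -1.32 (SE 0.22, limma BH-adjusted p = 0.00249). Slc7a14 (chr3:31202858-31310378, minus), a lysosomal transporter-like protein, was at 196, 128 and 152 CPM in heterozygotes and 66.9, 90.7 and 71.8 CPM in mutants in the cochlea. Slc7a14 in the vestibule was at 61.6, 63.8 and 60.2 CPM in heterozygotes and 96.1, 103 and 105 CPM in mutants. The difference for Slc7a14 was -1.73 (SE 0.22, limma BH-adjusted p = 0.000484). Slc7a14's vestibular call was lost without vestibular mutant 2 or 3 (highest BH-adjusted p = 0.0583). Brip1 (chr11:86058138-86201193, minus), a DNA helicase, was at 68.5, 87.0 and 70.9 CPM in heterozygotes and 65.7, 44.1 and 80.7 CPM in mutants in the cochlea, overlapping. Brip1 in the vestibule was at 171, 197 and 223 CPM in heterozygotes and 310.2, 393 and 423 CPM in mutants, all mutants above. The difference for Brip1 was -1.20 (SE 0.28, limma BH-adjusted p = 0.0278). For Brip1 this call was lost without cochlear heterozygote 2, cochlear mutant 1 or 2, vestibular heterozygote 2 or vestibular mutant 2 or 3, and with no filter on level (highest BH-adjusted p = 0.0803). Brip1's vestibular call was lost without vestibular mutant 2 or 3 (highest BH-adjusted p = 0.0565).

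Among 18 genes known from vestibular hair cells, 5 differed (8 with the block), 4 with the cochlear change below (2 without cochlear mutant replicate 1, vestibular heterozygote replicate 2, vestibular mutant replicate 2 or both cochlear replicate 3 libraries). Kcna10 (chr3:107183056-107195721, plus), a potassium channel subunit, was at 42.9, 36.4 and 29.9 CPM in heterozygotes and 3.25, 1.81 and 3.47 CPM in mutants in the cochlea. Kcna10 in the vestibule was at 475, 482 and 473 CPM in heterozygotes and 295, 196 and 206 CPM in mutants. It fell in both organs, more in the cochlea (-3.30 and -1.06, SE 0.20 each). The difference for Kcna10 was -2.24 (SE 0.28, limma BH-adjusted p = 0.000444). Anxa4 (chr6:86736840-86793584, minus), a calcium-dependent membrane-binding protein of vestibular hair cells, was at 359, 301 and 328 CPM in heterozygotes and 233, 217 and 256 CPM in mutants in the cochlea. Anxa4 in the vestibule was at 202, 212 and 194 CPM in heterozygotes and 345, 381 and 350.4 CPM in mutants. The difference for Anxa4 was -1.30 (SE 0.17, limma BH-adjusted p = 0.000535). Anxa4's cochlear call was lost without cochlear heterozygote 1 or 3, cochlear mutant 1 or 2 or both cochlear replicate 3 libraries (highest BH-adjusted p = 0.128). Spp1 (chr5:104435118-104441050, plus), osteopontin, a marker of type I vestibular hair cells also made by other cells, was at 29.3, 48.7 and 37.9 CPM in heterozygotes and 43.9, 49.6 and 56.6 CPM in mutants in the cochlea. Spp1 in the vestibule was at 1347, 1035 and 1042 CPM in heterozygotes and 289, 213 and 298 CPM in mutants. It fell in the vestibule by 2.10. The difference for Spp1 was 2.48 (SE 0.27, limma BH-adjusted p = 0.000128). With the block its cochlear rise of 0.38 (SE 0.19) was called (limma BH-adjusted p = 0.0375), which makes it opposite. Another gene overlaps 18.8% of the exon bases of Spp1.

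Of 16 tested transcription factors of hair cells, 1 fell in the cochlea (Gfi1), and 3 rose and 1 fell (Gfi1) in the vestibule. With the block 2 rose and 2 fell in the cochlea, and 10 rose and 1 fell in the vestibule. Atoh1 (chr6:64729125-64731245, plus), the factor that starts the hair cell programme, was at 53.0, 36.2 and 63.9 CPM in heterozygotes and 73.2, 69.3 and 65.3 CPM in mutants in the cochlea. Atoh1 in the vestibule was at 31.8, 17.5 and 28.9 CPM in heterozygotes and 138, 77.5 and 103 CPM in mutants. All mutants were above all heterozygotes in both organs, but the changes were 0.47 (SE 0.25) (not called) and 1.99 (SE 0.25). The difference for Atoh1 was -1.52 (SE 0.35, limma BH-adjusted p = 0.0264). This difference was lost without cochlear heterozygote 1 or 3, any cochlear mutant, vestibular heterozygote 2, vestibular mutant 1 or 3 or both cochlear replicate 3 libraries (highest BH-adjusted p = 0.155), and with the block the cochlear rise was called as well (limma BH-adjusted p = 0.0316). Barhl1 (chr2:28907679-28916668, minus), a homeodomain factor kept on in hair cells, was at 30.1, 25.0 and 28.3 CPM in heterozygotes and 14.9, 20.8 and 16.2 CPM in mutants in the cochlea. Barhl1 in the vestibule was at 102, 65.5 and 64.5 CPM in heterozygotes and 193, 114 and 98.4 CPM in mutants. Neither organ was called (-0.66 and 0.77, SE 0.23 each), and the difference of -1.44 (SE 0.33, limma BH-adjusted p = 0.0271) was not kept in all settings. For Barhl1 this call was lost without cochlear heterozygote 1 or 3, cochlear mutant 1 or 3, vestibular heterozygote 2 or 3 or both cochlear replicate 3 libraries (highest BH-adjusted p = 0.131). With the block both were called, in opposite directions (limma BH-adjusted p = 0.00194 and 0.000528). The called differences in this list were those 2, and 8 with the block. Pou4f3 did not pass (-0.17 and 0.33, SE 0.17 each), and with the block it differed and rose in the vestibule alone (limma BH-adjusted p = 0.0308 for the difference).

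In the Notch pathway, through which a hair cell keeps its neighbours from the same fate, 4 ligands had cochlear changes below their vestibular changes. Of 23 pathway genes 5 differed, 4 with the cochlear change below, and these 4 were the ligands Dll3, Dll4, Jag2 and Dll1. Dll3 (chr7:28293553-28302238, minus), a ligand that acts inside the cell, was at 10.3, 11.3 and 12.4 CPM in heterozygotes and 2.75, 3.23 and 1.62 CPM in mutants in the cochlea. Dll3 in the vestibule was at 9.82, 6.63 and 7.73 CPM in heterozygotes and 14.2, 15.4 and 11.3 CPM in mutants. The difference for Dll3 was -2.52 (SE 0.32, limma BH-adjusted p = 0.000484). Dll4 (chr2:119325784-119335962, plus) was at 9.40, 14.2 and 13.6 CPM in heterozygotes and 5.75, 5.16 and 4.75 CPM in mutants in the cochlea. Dll4 in the vestibule was at 25.9, 22.9 and 31.1 CPM in heterozygotes and 45.4, 34.4 and 37.3 CPM in mutants. The difference for Dll4 was -1.63 (SE 0.28, limma BH-adjusted p = 0.00340). Dll4's cochlear call was lost without both cochlear replicate 3 libraries (highest BH-adjusted p = 0.0559). Jag2 (chr12:112907819-112929776, minus) was at 66.1, 64.0 and 72.1 CPM in heterozygotes and 34.7, 54.7 and 56.1 CPM in mutants in the cochlea. Jag2 in the vestibule was at 266, 224 and 278 CPM in heterozygotes and 548, 437 and 441 CPM in mutants. The difference for Jag2 was -1.38 (SE 0.24, limma BH-adjusted p = 0.00421). For each of the 3 the mutants lay wholly below in the cochlea and wholly above in the vestibule. Without the block Dll3 and Dll4 were called in the cochlea alone and Jag2 in the vestibule alone, and with it all 3 were opposite (limma BH-adjusted p = 0.0307 for Dll3 and 0.0391 for Dll4 in the vestibule, 0.00844 for Jag2 in the cochlea). Dll1 was called in neither organ (-0.54 and 0.76, SE 0.21 each). The difference for Dll1 was -1.29 (SE 0.30, limma BH-adjusted p = 0.0296). For Dll1 this call was lost without any cochlear heterozygote, cochlear mutant 1 or 2, vestibular heterozygote 2 or both cochlear replicate 3 libraries (highest BH-adjusted p = 0.0913), and with the block it was opposite (limma BH-adjusted p = 0.00767 and 0.000450). Dner, a ligand-like protein of neurons, rose in the cochlea alone (1.21 and 0.24, SE 0.15 each), and its difference of 0.97 (SE 0.22, limma BH-adjusted p = 0.0234) was not kept in all settings. For Dner this call was lost without cochlear heterozygote 2, vestibular heterozygote 2 or 3 or vestibular mutant 3, and with median-of-ratios rescaling (highest BH-adjusted p = 0.0744). The receptors Notch1 (-0.04 and -0.23) and Notch2 (0.07 and -0.27) and the effector Hes1 (0.56 and -0.67) did not pass in either organ or in the difference, and of these Hes1 differed with the block (limma BH-adjusted p = 0.0307).

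Genes of growing neurons were among the 46 that rose in the cochlea alone. Of 24 genes of the neuronal cytoskeleton and growth cone, 12 rose in the cochlea, 7 rose in the vestibule (11 with the block) and 4 differed, all with the cochlear change above (0.709% of all genes in that direction). The count of 4 was 2 without cochlear heterozygote replicate 2, vestibular heterozygote replicate 2 or both cochlear replicate 3 libraries, and 8 with the block. Gap43 (chr16:42248442-42340651, minus), a growth cone protein, was at 9.91, 13.7 and 12.1 CPM in heterozygotes and 81.7, 182 and 90.7 CPM in mutants in the cochlea. Gap43 in the vestibule was at 3.04, 4.19 and 2.72 CPM in heterozygotes and 6.07, 6.63 and 5.61 CPM in mutants. All mutants were above the heterozygotes in both organs, with changes of 3.13 (SE 0.26) and 0.73 (SE 0.26). The latter was not called without the block (limma BH-adjusted p = 0.148) and called with it (limma BH-adjusted p = 0.00937). The difference for Gap43 was 2.40 (SE 0.37, limma BH-adjusted p = 0.00185). L1cam (chrX:73853778-73896105, minus), an axonal adhesion molecule, was at 7.88, 20.0 and 21.4 CPM in heterozygotes and 35.5, 76.7 and 47.7 CPM in mutants in the cochlea. L1cam in the vestibule was at 2.72, 5.45 and 4.73 CPM in heterozygotes and 1.95, 2.34 and 1.84 CPM in mutants. It rose in the cochlea, while the vestibular mutants were wholly lower without a call. The difference for L1cam was 2.45 (SE 0.49, limma BH-adjusted p = 0.0119). L1cam's cochlear call was lost without cochlear mutant 2 (highest BH-adjusted p = 0.0605), and with the block it was opposite (vestibule, limma BH-adjusted p = 0.0170). Stmn2 (2.13 and -0.04, SE 0.39 each), a microtubule regulator of axons, had a difference of 2.17 (SE 0.55, limma BH-adjusted p = 0.0456). For Stmn2 this call was lost without cochlear heterozygote 1 or 2, cochlear mutant 2 or 3, vestibular heterozygote 1 or 2, vestibular mutant 1 or 3, both vestibular replicate 1 libraries or both cochlear replicate 3 libraries, and with pseudocount 0.25, no filter on level, quantile normalization, edgeR or DESeq2 (highest BH-adjusted p = 0.136). Ncam1 (1.45 and -0.13, SE 0.24 each) had one of 1.58 (SE 0.34, limma BH-adjusted p = 0.0185). For Ncam1 this call was lost without cochlear heterozygote 2, vestibular heterozygote 2 or both cochlear replicate 3 libraries (highest BH-adjusted p = 0.0972). Tubb2b, a tubulin of young neurons, rose in both organs (1.56 and 1.43, SE 0.21 each) with no called difference. The ganglion neuron sums given above were higher in the mutants of both organs, and their part in these results was not tested.

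Other genes that rose in the cochlea alone came from several functions. Sphkap (chr1:83254139-83408200, minus), which anchors protein kinase A, was at 1.52, 3.05 and 2.03 CPM in heterozygotes and 23.9, 44.7 and 37.5 CPM in mutants in the cochlea. Sphkap in the vestibule was at 4.29, 7.09 and 12.4 CPM in heterozygotes and 6.33, 5.48 and 5.65 CPM in mutants, overlapping. Its difference of 3.77 (SE 0.45, limma BH-adjusted p = 0.000284) was the largest of the class. Cadps (chr14:12372563-12823079, minus), which primes dense-core vesicles, was at 35.7, 38.9 and 40.2 CPM in heterozygotes and 108, 144 and 108 CPM in mutants in the cochlea. Cadps in the vestibule was at 9.64, 11.0 and 11.0 CPM in heterozygotes and 10.6, 15.1 and 13.6 CPM in mutants. The difference for Cadps was 1.34 (SE 0.24, limma BH-adjusted p = 0.00440). Cdhr1 (chr14:37077857-37098347, minus), a cadherin of photoreceptors and of olfactory neurons, was at 2.54, 4.91 and 3.52 CPM in heterozygotes and 22.2, 84.1 and 33.0 CPM in mutants in the cochlea. Cdhr1 in the vestibule was at 2.01, 6.88 and 4.19 CPM in heterozygotes and 3.06, 8.62 and 2.95 CPM in mutants. The difference for Cdhr1 was 3.05 (SE 0.66, limma BH-adjusted p = 0.0188). For Cdhr1 this call was lost without cochlear heterozygote 1, vestibular heterozygote 2 or both cochlear replicate 3 libraries (highest BH-adjusted p = 0.0771). Scnn1g, a sodium channel subunit (chr7:121734479-121768475, plus), and Galnt5, a glycosyltransferase of mucin-type sugars (chr2:57997884-58045860, plus), rose in the cochlea by 1.83 (SE 0.31) and 1.92 (SE 0.30), with differences of 2.43 (SE 0.44) and 2.38 (SE 0.43). The regulators Dusp1 (chr17:26505590-26562128, minus), a phosphatase of the MAP kinases made soon after stimulation, and Id2 (chr12:25093799-25097140, minus), an inhibitor of bHLH factors, also rose there alone. Dusp1 was at 5.97, 10.1 and 7.16 CPM in heterozygotes and 26.4, 48.4 and 27.2 CPM in mutants in the cochlea. Dusp1 in the vestibule was at 11.7, 13.3 and 12.6 CPM in heterozygotes and 12.7, 7.90 and 8.97 CPM in mutants (difference 2.32 (SE 0.36, limma BH-adjusted p = 0.00185)). Id2 was at 30.6, 32.7 and 35.7 CPM in heterozygotes and 97.7, 87.1 and 98.4 CPM in mutants in the cochlea. Id2 in the vestibule was at 29.8, 28.6 and 22.9 CPM in heterozygotes and 22.5, 30.0 and 21.6 CPM in mutants (difference 1.62 (SE 0.22, limma BH-adjusted p = 0.000718)). For both genes the vestibular groups overlapped. Tgfbr1, a receptor of TGF-beta (0.81 and -0.20, SE 0.16 each), had a difference of 1.01 (SE 0.23, limma BH-adjusted p = 0.0271). For Tgfbr1 this call was lost without cochlear heterozygote 1 or 3, cochlear mutant 1 or 2, vestibular heterozygote 2 or 3 or both cochlear replicate 3 libraries, and with edgeR (highest BH-adjusted p = 0.100). Tgfbr1's cochlear call was lost without both cochlear replicate 3 libraries (highest BH-adjusted p = 0.0637).

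Among the genes that rose in the vestibule alone were enzymes of amine and tryptophan metabolism and an orphan receptor. Ddc (chr11:11814101-11898144, minus), dopa decarboxylase, makes dopamine and serotonin from their precursors. It was at 3.18, 2.92 and 5.55 CPM in heterozygotes and 7.37, 5.68 and 5.33 CPM in mutants in the cochlea, overlapping. Ddc in the vestibule was at 14.0, 17.0 and 16.1 CPM in heterozygotes and 191, 175 and 226 CPM in mutants. The vestibular mutants were far above, with changes of 0.57 (SE 0.21) in the cochlea and 3.57 (SE 0.21) in the vestibule. The difference for Ddc was -2.99 (SE 0.30, limma BH-adjusted p = 6.05e-05). Tdo2 (chr3:81957090-81976202, minus), which breaks down tryptophan, was at 1.52, 0.133 and 0.427 CPM in heterozygotes and 1.50, 1.16 and 2.78 CPM in mutants in the cochlea. Tdo2 in the vestibule was at 0.312, 0.294 and 0.272 CPM in heterozygotes and 14.8, 15.8 and 18.3 CPM in mutants. The difference for Tdo2 was -2.96 (SE 0.43, limma BH-adjusted p = 0.000954). Only the mutants carried Tdo2 past the filter in the vestibule, so its values are a description. Gpr149 (chr3:62529077-62605140, minus), an orphan receptor, was at 2.03, 2.66 and 1.50 CPM in heterozygotes and 1.62, 2.71 and 1.16 CPM in mutants in the cochlea. Gpr149 in the vestibule was at 0.759, 1.01 and 0.885 CPM in heterozygotes and 34.0, 28.8 and 31.1 CPM in mutants. Its difference was -4.23 (SE 0.34). A pair of amine genes fell in the vestibule. Maob (chrX:16709282-16817366, minus), monoamine oxidase B, was at 6.48, 9.03 and 5.77 CPM in heterozygotes and 9.87, 16.3 and 7.88 CPM in mutants in the cochlea. Maob in the vestibule was at 13.4, 19.5 and 17.4 CPM in heterozygotes and 3.11, 3.91 and 4.10 CPM in mutants, a fall there. The difference for Maob was 2.48 (SE 0.37, limma BH-adjusted p = 0.00117). With the block its cochlear rise was called too (limma BH-adjusted p = 0.0484). Slc18a2, the vesicular monoamine transporter, fell in the vestibule alone (-1.43, SE 0.25 against 0.01 (SE 0.25)), but its difference of 1.44 (SE 0.36, limma BH-adjusted p = 0.0413) was not kept in all settings. For Slc18a2 this call was lost without any cochlear heterozygote, any cochlear mutant, vestibular heterozygote 2 or 3, vestibular mutant 1 or 3 or both cochlear replicate 3 libraries, and with no filter on level, quantile normalization or edgeR (highest BH-adjusted p = 0.182). Slc18a2 is also on the mast cell list, whose sum was lower in the vestibular mutants as given above, and the part of these cells was not tested. In the list of 13 transmitter transporters and enzymes 4 genes differed, 2 in each direction (10 with the block, 6 above and 4 below), among them Ddc, Tdo2 and Slc18a2.

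Promoter sequences were read for the class because GFI1 represses genes through sites with an AATC core, here searched as the letters AAATCA on either strand (TGATTT when read from the other) in the 250 bases before each start in RefSeq (GRCm38.p6). Of 67 vestibule-alone higher genes with an entry 16 (23.9%) held the letters. The letters were held by 5 of 37 genes (13.5%) higher in the cochlea alone, 10 of 141 (7.09%) lower in the cochlea alone, 2 of 28 (7.14%) lower in the vestibule alone and 2 of 26 (7.69%) of the opposite class. They were held by 1020 of 10902 (9.36%) of all genes tested and by 4082 of 32851 promoters (12.4%) in the table. These shares are a description, and a match is not shown to be a site. The 3 described genes of the vestibule-alone higher class with a match are shown, all from GRCm38.p6 and the minus strand, 5′ to 3′ and ending at the base before the start, with the matching letters in capitals: Ddc (chr11:11898145-11898394, 2 copies), Scn11a (chr9:119825457-119825706) and Brip1 (chr11:86201194-86201443, in reverse).
Ddc: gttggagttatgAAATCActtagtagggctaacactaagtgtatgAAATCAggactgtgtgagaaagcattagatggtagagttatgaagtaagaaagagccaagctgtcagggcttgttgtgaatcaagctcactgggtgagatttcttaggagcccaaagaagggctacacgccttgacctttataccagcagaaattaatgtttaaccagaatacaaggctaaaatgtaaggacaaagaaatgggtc
Scn11a: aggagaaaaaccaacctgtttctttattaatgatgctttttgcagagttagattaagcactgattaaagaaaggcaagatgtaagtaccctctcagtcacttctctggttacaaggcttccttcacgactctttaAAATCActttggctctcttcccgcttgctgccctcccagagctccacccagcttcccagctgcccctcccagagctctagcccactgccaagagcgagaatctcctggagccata
Brip1: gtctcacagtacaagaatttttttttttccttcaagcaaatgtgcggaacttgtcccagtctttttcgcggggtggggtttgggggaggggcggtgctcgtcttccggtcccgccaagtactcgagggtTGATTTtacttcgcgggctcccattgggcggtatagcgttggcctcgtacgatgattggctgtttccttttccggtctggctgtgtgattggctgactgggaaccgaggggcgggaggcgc
Of the opposite genes Casz1 and Fez1 held the letters, in the windows chr4:148889097-148889346 and chr9:36833324-36833573 on the plus strand, which lie at starts that open no transcript in GENCODE M21, and they are not shown.

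Channels, adhesion molecules and guidance receptors were also among the genes that rose in the vestibule alone. Scn11a (chr9:119753759-119825456, minus), a sodium channel of sensory neurons, was at 68.1, 130.1 and 124 CPM in heterozygotes and 66.2, 88.3 and 77.5 CPM in mutants in the cochlea, overlapping. Scn11a in the vestibule was at 9.33, 9.60 and 11.3 CPM in heterozygotes and 30.7, 36.4 and 36.9 CPM in mutants, all mutants above. The difference for Scn11a was -2.11 (SE 0.30, limma BH-adjusted p = 0.000884). With the block the cochlear change of -0.42 (SE 0.21) was called lower (limma BH-adjusted p = 0.0375), which makes it opposite. Scn9a (1.69 and 3.55, SE 0.26 each) rose in both organs, more in the vestibule. The difference for Scn9a was -1.86 (SE 0.37, limma BH-adjusted p = 0.0110). For Scn9a this call was lost without both cochlear replicate 3 libraries, and with pseudocount 4 (highest BH-adjusted p = 0.217). Robo1 (chr16:72308306-73046095, plus), a receptor for the guidance signals Slit, was at 195, 209 and 176 CPM in heterozygotes and 196, 215 and 189 CPM in mutants in the cochlea. Robo1 in the vestibule was at 51.1, 76.6 and 78.4 CPM in heterozygotes and 159.7, 255 and 234 CPM in mutants. The difference for Robo1 was -1.59 (SE 0.26, limma BH-adjusted p = 0.00287). Tenm2 (chr11:36006656-37235964, minus), a teneurin of synapses, was at 111, 85.5 and 87.5 CPM in heterozygotes and 87.6, 82.8 and 89.6 CPM in mutants in the cochlea. Tenm2 in the vestibule was at 7.50, 13.1 and 13.2 CPM in heterozygotes and 42.3, 64.5 and 61.8 CPM in mutants. The difference for Tenm2 was -2.35 (SE 0.29, limma BH-adjusted p = 0.000444). Both overlapped between genotypes in the cochlea and were apart in the vestibule. Grm7 (chr6:110645581-111567230, plus), a presynaptic glutamate receptor, was at 4.32, 7.17 and 5.77 CPM in heterozygotes and 5.62, 6.07 and 4.05 CPM in mutants in the cochlea. Grm7 in the vestibule was at 11.1, 9.27 and 9.91 CPM in heterozygotes and 38.6, 40.8 and 31.9 CPM in mutants. The difference for Grm7 was -1.88 (SE 0.30, limma BH-adjusted p = 0.00220). Chga (chr12:102554969-102565028, plus), chromogranin A of secretory granules, was at 38.2, 48.2 and 41.5 CPM in heterozygotes and 40.6, 49.9 and 44.4 CPM in mutants in the cochlea. Chga in the vestibule was at 94.7, 90.7 and 90.6 CPM in heterozygotes and 202, 208 and 173 CPM in mutants. The difference for Chga was -0.99 (SE 0.19, limma BH-adjusted p = 0.00684). Pou4f2 (chr8:78433010-78436645, minus), a POU factor of sensory neurons, was at 1.65, 3.85 and 2.99 CPM in heterozygotes and 1.87, 2.45 and 2.55 CPM in mutants in the cochlea. Pou4f2 in the vestibule was at 0.804, 1.22 and 0.375 CPM in heterozygotes and 11.8, 7.64 and 8.03 CPM in mutants. The difference for Pou4f2 was -2.68 (SE 0.40).

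The other large rises of the vestibule alone were Slc35d3, a sugar-nucleotide transporter-like gene (-0.75 and 1.81, SE 0.30 each, difference -2.56 (SE 0.42)), Myot, a protein of muscle Z discs (0.06 and 2.57, SE 0.23 each, difference -2.52 (SE 0.32)), and the clustered protocadherin Pcdha11 (0.63 and 2.97, SE 0.29 each, difference -2.34 (SE 0.41)). Pcdha11 shares its constant exons with the rest of its cluster (53.4% of exon bases), so its reads are uncertain. Of 21 tested clustered protocadherins of the list, 6 rose in the vestibule, 1 rose in the cochlea and 1 differed (3 with the block), Pcdhb14 (0.23 and 1.61, SE 0.21 each), whose difference of -1.38 (SE 0.30, limma BH-adjusted p = 0.0209) was not kept in all settings. For Pcdhb14 this call was lost without cochlear heterozygote 1 or 2, cochlear mutant 1 or 3, vestibular heterozygote 2 or vestibular mutant 2 (highest BH-adjusted p = 0.0642). These genes are near-copies of one another and their reads may be shared. The cell cycle inhibitor Cdkn1a (chr17:29090976-29100727, plus) was at 22.5, 23.1 and 20.7 CPM in heterozygotes and 15.7, 21.4 and 16.6 CPM in mutants in the cochlea. Cdkn1a in the vestibule was at 64.8, 67.2 and 62.6 CPM in heterozygotes and 99.5, 116 and 109 CPM in mutants. It rose in the vestibule alone. The difference for Cdkn1a was -1.03 (SE 0.20, limma BH-adjusted p = 0.00864), and Cdkn1a was the only one of 10 tested targets of the DNA damage response with a called difference (2 of 10 with the block).

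Falls in the vestibule alone included a matrix-associated gene, an immunoglobulin gene and a gene of steroid synthesis. Nov (chr15:54745702-54754039, plus), a secreted matrix-associated protein, was at 32.0, 23.8 and 40.4 CPM in heterozygotes and 33.9, 23.6 and 36.4 CPM in mutants in the cochlea, overlapping. Nov in the vestibule was at 25.3, 26.0 and 26.4 CPM in heterozygotes and 1.90, 5.69 and 3.52 CPM in mutants, all mutants far below. The difference for Nov was 2.57 (SE 0.39, limma BH-adjusted p = 0.00142). Ighm (chr12:113418558-113422730, minus), the immunoglobulin heavy chain of B cells, was at 32.0, 38.2 and 38.6 CPM in heterozygotes and 24.9, 33.4 and 42.7 CPM in mutants in the cochlea. Ighm in the vestibule was at 241, 132 and 157 CPM in heterozygotes and 32.9, 24.2 and 21.7 CPM in mutants. The difference for Ighm was 2.54 (SE 0.33, limma BH-adjusted p = 0.000484). Lymphocyte marker sums overlapped in the vestibule (heterozygotes 121 to 177 CPM, mutants 146 to 184 CPM). None of the 7 tested lymphocyte markers was called in either organ without the block. Cyp11a1 (chr9:58006411-58027023, plus), the first enzyme of steroid synthesis, which mast cells can also make, was at 1.02, 2.12 and 1.17 CPM in heterozygotes and 0.375, 1.03 and 0.347 CPM in mutants in the cochlea. Cyp11a1 in the vestibule was at 41.2, 33.7 and 38.8 CPM in heterozygotes and 4.12, 6.41 and 6.84 CPM in mutants. Its vestibular fall of 2.54 was called, but its difference of 1.92 (SE 0.37, limma BH-adjusted p = 0.00778) was not kept in all settings. For Cyp11a1 this call was lost with pseudocount 0.25, edgeR or DESeq2 (highest BH-adjusted p = 0.348). Ak5 (-0.23 and -2.30, SE 0.23 each), an adenylate kinase of neurons, and Serpinb1a (-0.03 and -2.18, SE 0.33 each), an inhibitor of granule proteases, also fell there alone. For Serpinb1a this difference was lost without cochlear heterozygote 1, vestibular heterozygote 2 or both cochlear replicate 3 libraries (highest BH-adjusted p = 0.0595). Scg2, a granin of secretory granules, changed by 0.91 (SE 0.39) in the cochlea and -1.52 (SE 0.39) in the vestibule. The difference for Scg2 was 2.42 (SE 0.55, limma BH-adjusted p = 0.0251). For Scg2 this call was lost without cochlear heterozygote 3, cochlear mutant 1, vestibular heterozygote 2 or 3, vestibular mutant 2 or both vestibular replicate 1 libraries, and with no filter on level (highest BH-adjusted p = 0.0667). Scg2's vestibular call was lost without cochlear mutant 1, any vestibular heterozygote, any vestibular mutant or both vestibular replicate 1 libraries, and with pseudocount 0.25, no filter on level or quantile normalization (highest BH-adjusted p = 0.118). With the block its cochlear rise was called as well (limma BH-adjusted p = 0.0158). Hapln1, a cartilage link protein (0.65 and -1.19, SE 0.32 each), had a difference of 1.84 (SE 0.45, limma BH-adjusted p = 0.0370). For Hapln1 this call was lost without cochlear heterozygote 2 or 3, any cochlear mutant, vestibular heterozygote 2 or 3, vestibular mutant 1 or 3 or both cochlear replicate 3 libraries, and with quantile normalization or edgeR (highest BH-adjusted p = 0.111). Hapln1's vestibular call was lost without cochlear heterozygote 3, any cochlear mutant, vestibular heterozygote 2 or 3, vestibular mutant 1 or 3, both vestibular replicate 1 libraries or both cochlear replicate 3 libraries, and with pseudocount 4, no filter on level, quantile normalization, a variance per organ or edgeR (highest BH-adjusted p = 0.187). Of 9 mast cell markers 7 fell in the vestibule and 2 in the cochlea, with 1 called difference, and 7 differed with the block. Of 16 mesenchyme markers 4 fell in the vestibule (14 with the block), none in the cochlea, with no called difference but 13 with the block, and the part of these cells in the falls was not tested. Granulocyte markers fell in both organs (6 of 8 in each), and Ltf, which encodes lactoferrin, differed (-2.16 and -4.01, SE 0.28 each). The difference for Ltf was 1.86 (SE 0.40, limma BH-adjusted p = 0.0175). For Ltf this call was lost without cochlear heterozygote 1, cochlear mutant 1, vestibular heterozygote 2 or both cochlear replicate 3 libraries, and with pseudocount 0.25, edgeR or DESeq2 (highest BH-adjusted p = 0.762).

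Several of the largest falls in the cochlea alone were genes on none of the functional lists. Erich5 (chr15:34453305-34473892, plus) was at 16.4, 23.6 and 22.9 CPM in heterozygotes and 0.750, 0.387 and 0.347 CPM in mutants in the cochlea, the mutants standing for a few reads each. Erich5 in the vestibule was at 12.3, 33.6 and 34.7 CPM in heterozygotes and 12.0, 23.2 and 18.6 CPM in mutants. Its cochlear change of -3.87 (SE 0.34) and its vestibular change of -0.47 (SE 0.34) gave a difference of -3.40 (SE 0.48, limma BH-adjusted p = 0.000876). Only the heterozygotes carried Erich5 past the filter in the cochlea, so its values are a description. Pkn3 (chr2:30077684-30091022, plus), a protein kinase, was at 35.6, 28.4 and 31.9 CPM in heterozygotes and 2.37, 3.23 and 2.08 CPM in mutants in the cochlea. Pkn3 in the vestibule was at 13.3, 8.47 and 10.5 CPM in heterozygotes and 12.5, 12.0 and 9.91 CPM in mutants. The difference for Pkn3 was -3.31 (SE 0.30, limma BH-adjusted p = 2.39e-05). For both the cochlear groups were far apart and the vestibular ones overlapped. Ofcc1 (chr13:40001882-40361450, minus) was at 13.2, 8.76 and 13.6 CPM in heterozygotes and 0.750, 0.387 and 0.927 CPM in mutants in the cochlea. Ofcc1 in the vestibule was at 78.3, 93.4 and 99.9 CPM in heterozygotes and 93.6, 92.0 and 86.7 CPM in mutants, with a vestibular change of 0.01 (95% interval -0.40 to 0.42). The difference for Ofcc1 was -2.93 (SE 0.27, limma BH-adjusted p = 3.56e-05). Ofcc1 too met the filter in the cochlea through the heterozygotes only, and its values are a description. Faim2 (chr15:99497012-99528165, minus), an inhibitor of Fas-induced cell death in neurons, was at 97.6, 91.1 and 73.9 CPM in heterozygotes and 10.5, 21.2 and 10.8 CPM in mutants in the cochlea. Faim2 in the vestibule was at 267, 217 and 197 CPM in heterozygotes and 316, 251 and 205 CPM in mutants. The difference for Faim2 was -2.78 (SE 0.33, limma BH-adjusted p = 0.000284). Fam19a3 (chr3:104767406-104781840, minus), a secreted chemokine-like peptide, was at 101, 89.0 and 96.3 CPM in heterozygotes and 14.1, 11.7 and 21.9 CPM in mutants in the cochlea. Fam19a3 in the vestibule was at 9.20, 12.8 and 15.0 CPM in heterozygotes and 17.3, 16.5 and 14.0 CPM in mutants. The difference for Fam19a3 was -2.92 (SE 0.31, limma BH-adjusted p = 0.000112). The vestibular groups of Ofcc1, Faim2 and Fam19a3 overlapped. Oacyl changed by -2.44 (SE 0.29) in the cochlea and 0.47 (SE 0.29) in the vestibule, where all mutants lay above the heterozygotes. The difference for Oacyl was -2.91 (SE 0.41, limma BH-adjusted p = 0.000858). With the block it was opposite (limma BH-adjusted p = 0.0291 in the vestibule). Of the channels and guidance receptors, Kcnh2 (-1.20 and 0.18, SE 0.20 each), a potassium channel, and Unc5a (-1.28 and 0.40, SE 0.24 each), a netrin receptor, fell in the cochlea alone, with differences of -1.38 (SE 0.28) and -1.68 (SE 0.33). Stra6, a retinol transporter (-1.90 and -0.26, SE 0.23 each), fell there alone as well, with a difference of -1.64 (SE 0.33).

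Genes that moved the same way in both organs to unequal extents numbered 24, of which 15 rose and 9 fell. Synpr (chr14:13284780-13616340, plus), synaptoporin of synaptic vesicles, rose more in the cochlea, at 1.78, 2.66 and 2.35 CPM in heterozygotes and 52.7, 59.0 and 46.1 CPM in mutants there. Synpr in the vestibule was at 25.2, 17.0 and 16.3 CPM in heterozygotes and 85.6, 86.7 and 94.2 CPM in mutants. The difference for Synpr was 1.89 (SE 0.26, limma BH-adjusted p = 0.000824). St18, a zinc finger factor of neurons, rose in both (5.99 and 4.18, SE 0.31 each), but its difference of 1.81 (SE 0.43, limma BH-adjusted p = 0.0341) was not kept in all settings. For St18 this call was lost without cochlear heterozygote 2 or 3, any cochlear mutant, vestibular heterozygote 2, any vestibular mutant or both cochlear replicate 3 libraries, and with pseudocount 0.25, no filter on level, quantile normalization or edgeR (highest BH-adjusted p = 0.111). Mab21l1, a developmental gene that shares 39.4% of its exon bases with Nbea, rose more in the vestibule (1.78 and 4.05, SE 0.22 each, difference -2.27 (SE 0.31, limma BH-adjusted p = 0.000645)). Elavl4, a neuronal RNA-binding protein, also rose more there (1.21 and 2.82, SE 0.23 each, difference -1.61 (SE 0.32, limma BH-adjusted p = 0.0110)), a call lost without both cochlear replicate 3 libraries, and with pseudocount 4 (highest BH-adjusted p = 0.0907). The cell death gene Hrk rose more in the cochlea (2.72 and 1.51, SE 0.20 each). The difference for Hrk was 1.21 (SE 0.28, limma BH-adjusted p = 0.0271). For Hrk this call was lost without cochlear heterozygote 1 or 3, cochlear mutant 2, vestibular heterozygote 2, vestibular mutant 3 or both cochlear replicate 3 libraries, and with median-of-ratios rescaling or quantile normalization (highest BH-adjusted p = 0.0844). Among 26 genes of synaptic vesicles and granules 4 differed in each direction. Of those with the cochlear change below, 1 was called without cochlear heterozygote replicate 1 or 2, cochlear mutant replicate 3 or both cochlear replicate 3 libraries, and 2 without cochlear mutant replicate 1 or 2, vestibular heterozygote replicate 2 or 3, or vestibular mutant replicate 2 or 3. Of the 4 above, 2 were called without vestibular heterozygote replicate 2 or vestibular mutant replicate 2. In this list Syt13, a synaptotagmin, fell in the cochlea (-0.72, SE 0.17, vestibule 0.36 (SE 0.17)), and its difference of -1.08 (SE 0.24, limma BH-adjusted p = 0.0233) was not kept in all settings. For Syt13 this call was lost without cochlear heterozygote 1 or 2, cochlear mutant 1 or 3, vestibular heterozygote 2 or 3 or both cochlear replicate 3 libraries (highest BH-adjusted p = 0.100). Syt13's cochlear call was lost without any cochlear heterozygote, cochlear mutant 1 or 3 or both cochlear replicate 3 libraries (highest BH-adjusted p = 0.149), and with the block it was opposite (limma BH-adjusted p = 0.00522 in the vestibule).

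No difference was called for any member of 22 of the 59 gene lists, 331 list entries in all. These lists were the unfolded protein response (19 genes), cholesterol synthesis (21), glycolysis and hypoxia response (24), heat shock (13), interferon response (24), cell cycle (34), fibroblast growth factor (25) and Wnt (31) signalling, GDNF and neurotrophin signalling (9), tectorial and otolithic membrane (13), neuronal bHLH factors (3), and 11 marker lists. For cholesterol synthesis 2 genes fell in the cochlea and 5 in the vestibule (6 and 11 with the block), and for the bHLH factors all 3 rose in the cochlea and 2 in the vestibule. A missing call does not show equal effects, and with the block 16 of these 22 lists held a called difference. These were 13 of 16 mesenchyme markers, all 7 mitochondrially encoded transcripts, 7 of 15 ganglion neuron markers, 7 Wnt genes, 6 cell cycle genes, 5 of 13 Schwann and satellite glia markers, 5 each of the fibroblast growth factor, glycolysis and membrane lists, and 4 or fewer in the others. With the block 1955 of all 14674 genes differed, so a call is not by itself particular to a list. Of transmitter receptors 3 of 26 differed (8 with the block), and of potassium channels 2 of 30 (8). Of sodium and calcium channels 2 of 29 did (7), and of axon guidance and adhesion genes 5 of 44 (22). Shares without the block were 6.67% to 11.5%, against 3.14% of all genes.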

How the data were processed

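Ribosome-bound RNA pulled down with antibody to HA was sequenced from 12 libraries. The deposited files give CPM per gene, and TopHat and the GRCm38 build are named per the submitters' processing notes, while the program that counted reads, whether it used strand, and the annotation are not given in the sources used here. Reads of overlapping genes therefore cannot be separated. All values (100%, tolerance 1e-06) came out as whole reads of their library. Genes with at least 1 CPM in 3 of 6 libraries of each organ were fitted on log2(CPM + 1) with limma 3.58.1 (R 4.3.3), with 4 group means, a trended variance and Benjamini-Hochberg adjusted p over all 14674 genes. On the recovered reads, edgeR 4.0.16 called 516 differences and DESeq2 1.42.0 called 815.

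Deviations of same-numbered libraries correlated at 0.259, 0.243 and 0.445 in the cochlea and 0.740, 0.484 and 0.597 in the vestibule, so that the numbers were taken to pair the libraries, and a fit with the replicate number as a block within organ was run beside the fit without it. Members and the 59 gene lists were chosen with earlier results of these data known. Named genes were the 8 with the largest differences in each class of 1 organ, the 12 largest opposite genes and up to 4 called members per list with the smallest p. Other genes were added after their values were seen. Some results that this rule names are not reported here. The fit was tested on simulated data. Of 14674 identifiers, 14664 were found in GENCODE M21. Figures were drawn with matplotlib 3.10.9. Promoters came from RefSeq (GRCm38.p6).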

Additional observations from a re-analysis of the deposited data

Results flagged for a closer look

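The genotype effect differed between cochlea and vestibule for 461 genes by the test of the difference itself, and 35 of these were called in opposite directions. Both counts are described above.

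Calls outside that comparison were made for genes that passed the level filter in 1 organ only. In the cochlea 52 such genes were called (31 higher and 21 lower in mutants) of 3311 tested, and in the vestibule 51 were called (23 higher and 28 lower) of 921 tested, by limma within the organ. Some of these genes, such as Lhx2, met the filter only through the genotype in which they were high, so the counts are a description. The difference between organs was not tested for these genes.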

How the results depend on the processing

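All 461 differences that could be fitted kept their sign under every setting tried, and no value of a described gene reversed. The filter of 5 CPM left 388 of them to fit. Leaving out 1 library gave 302 to 453 called differences, 165 to 233 genes in the cochlea alone, 81 to 137 in the vestibule alone, 20 to 29 opposite and 12 to 22 in the same direction, against 461, 234, 135, 35 and 24. The lowest number of called differences was without vestibular heterozygote replicate 2. Without both cochlear replicate 3 libraries these counts were 280, 142, 87, 19 and 14, and fewer libraries entered that fit.

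With the replicate block they were 1955, 544, 916, 167 and 125, with DESeq2 on recovered reads 815, 358, 274, 78 and 48, and with array weights 1034 called, 494 in the vestibule alone, 114 opposite and 73 in the same direction. A variance per organ left 22 opposite genes, and no filter on level left 15 in the same direction. The cause of these shifts was not tested. The split of called differences into above and below was 104 to 357, but 1012 to 943 with the block and 378 to 656 with array weights. The block ended no call of a described gene, and the classes it changed are given with the genes. Median changes over all genes were 0.05 in the cochlea and -0.06 in the vestibule, so that the difference had a median of 0.11, and 0.02 after median-of-ratios rescaling. Cochlear libraries were shallower than vestibular ones, which limits the cochlear values of scarce genes.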

Other observations

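Some genes passed the level filter in the cochlea only. Lhx2, a homeodomain factor, was at 0.762, 0 and 0.107 CPM in heterozygotes and 63.2, 147 and 55.8 CPM in mutants. Neurod1, a bHLH factor of neurons, was at 1.78, 0.664 and 0.107 CPM in heterozygotes and 83.5, 180.0 and 82.6 CPM in mutants. For both the mutant libraries lay far above the heterozygous ones, and since the mutant libraries by themselves carried both genes past the filter, these values are a description. Slc26a5, which encodes prestin, the motor of outer hair cells, fell, at 24.0, 13.3 and 17.1 CPM in heterozygotes and 1.50, 0.129 and 1.04 CPM in mutants (log2 change -3.38, SE 0.32, limma, BH-adjusted p = 2.84e-05).

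Among genes that passed it in the vestibule only, Ocm, the calcium buffer oncomodulin, fell, at 209, 206 and 192 CPM in heterozygotes and 33.5, 36.0 and 34.1 CPM in mutants (log2 change -2.52, SE 0.11, limma, BH-adjusted p = 3.94e-05). Rtp1, which helps olfactory receptors to the cell surface, rose, at 28.0, 34.1 and 31.9 CPM in heterozygotes and 187, 178 and 189 CPM in mutants (log2 change 2.53, SE 0.12, limma, BH-adjusted p = 5.75e-05). Neither gene's groups overlapped. These genes were picked after their values were seen.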
